A study of Mus musculus with 19 samples.

Results

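The response of wild-type (WT) mouse liver to furosemide-induced pre-renal azotemia (PRA) was described across all genes, with emphasis on genes outside the acute phase list. The comparison takes in 8 of the 19 libraries of the series, chosen by their titles: 4 WT PRA libraries and 4 WT vehicle libraries. All mice were C57BL/6. PRA mice were given 2 intraperitoneal doses of 4 mg furosemide each, with 3 h between them, vehicle mice were given vehicle on the same schedule, and liver was collected 6 h after dose 1. The model was fitted together with 4 libraries of non-injected WT liver and with 4 vehicle and 3 PRA libraries of IL-6-/- liver, which enter the text only where a level or a response is set against them. Age and sex were not given in the labels, and nothing in the labels says whether each replicate was its own animal; the tests measure how far these libraries spread, which may be technical. PRA here names the treatment, since no urea or creatinine value accompanies the libraries.

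Pre-renal azotemia is a build-up of urea and other nitrogenous waste in blood when the kidney is poorly perfused. Furosemide, a loop diuretic, blocks the sodium-potassium-chloride cotransporter of the thick ascending limb and so lowers plasma volume. The liver senses such systemic stress through cytokine, catecholamine, glucocorticoid and insulin signalling, and it answers by changing the proteins it secretes, the fuels it burns and the metals and amino acids it holds. Its sinusoids are lined by fenestrated endothelial cells that exchange VEGF, BMP, Wnt and Notch signals with hepatocytes and stellate cells.

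The 8 libraries held 32073865 to 52074951 counts in genes after PRA and 48425801 to 74041441 after vehicle. Levels are normalised read counts (CPM, counts scaled to library size) in the order of replicates 1 to 4. The libraries matched their tissue label: Alb, the hepatocyte's main secreted protein, stood at 49663, 65700.0, 60973 and 60999 CPM after vehicle and 66742, 60618, 65300.0 and 64970.0 CPM after PRA. The summed level of 20 hepatocyte markers was 80019 to 102964 CPM after vehicle and 106567 to 112527 CPM after PRA, and 8 of 12 markers of kidney and pancreas were too low to test. PRA replicate 1 stood apart on the second principal component, which carried 14.63% of the variance, at -49.4 where the other 7 libraries lay between -12.9 and 23.8. Over the counts of all genes, vehicle replicate 1, the deepest library, differed most from the rest of its group: chi-square over degrees of freedom, which grows with depth, was 122.1 to 145.7 against each of the others and 29.55 to 78.22 among them. Dmbt1, a mucosal scavenger protein of duct and gut epithelium, was at 0.433, 0, 0 and 0.345 CPM after vehicle and 278, 0, 0 and 0 CPM after PRA, with 0 counts where 0 is printed, and its log2 fold change turned from 8.32 to -6.48 without PRA replicate 1, and it missed the test without vehicle replicate 2 too (edgeR adjusted p = 0.0524). Acta2, the actin of smooth muscle, was at 3.26, 1.83, 4.06 and 19.1 CPM after vehicle and 58.2, 2.64, 4.28 and 4.90 CPM after PRA. Krt19, a keratin of bile duct cells, was at 1.04, 1.09, 1.47 and 1.47 CPM after vehicle and 40.9, 0.947, 1.10 and 0.805 CPM after PRA. Krt19 passed the test narrowly and missed it without PRA replicate 1 or any 1 vehicle library (without PRA replicate 1, log2 fold change -0.41, edgeR adjusted p = 0.329), and duct and smooth muscle genes were not read further.

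Of 15570 genes tested, 1516 were higher after PRA (9.74%) and 1921 lower (12.3%), 3437 in all (22.1%), at an adjusted p of 0.05 or less in edgeR's quasi-likelihood test. These shares are the background for every count below. At least 2-fold higher were 495 genes (3.18%) and at least 2-fold lower 572 (3.67%). Without PRA replicate 1 the counts were 1222 higher and 1548 lower, and without vehicle replicate 1 they were 1632 and 1782. In 1724 genes every PRA library lay above every vehicle library (11.1%), and in 1885 every one lay below (12.1%). The median log2 fold change over all genes was -0.03. Scaling by the upper quartile in place of TMM moved that median to -0.07 and the share of higher genes among those called from 44.1% to 34.0%. The first principal component, with 43.57% of the variance, separated the 4 PRA libraries (31.4 to 46.7) from the 4 vehicle libraries (-40.5 to -30.7).

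**Figure D1:**
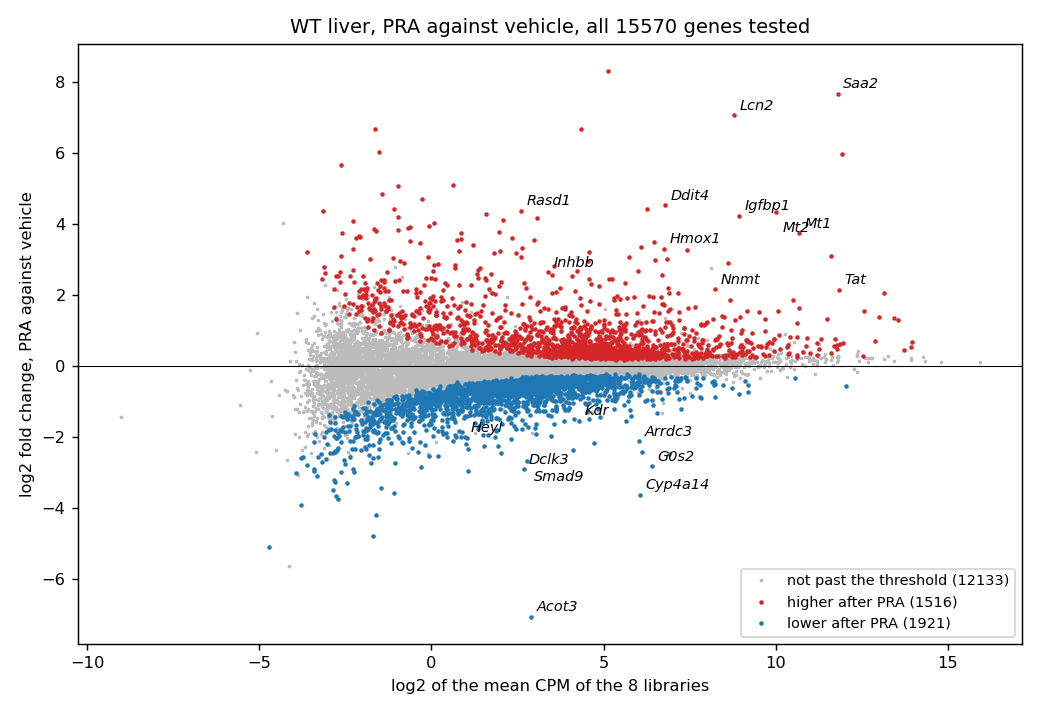
Change against level for all 15570 genes tested in WT liver: the x axis is log2 of the mean CPM of the 8 libraries, the y axis the log2 fold change of PRA against vehicle. Red points are the 1516 genes higher and blue points the 1921 genes lower at an adjusted p of 0.05 or less, and the named genes are those described in the text.

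Lcn2, Saa2, Ddit4 and Kdr mark the comparison. Lcn2 encodes lipocalin 2, which binds bacterial siderophores, and was at 7.54, 6.11, 5.44 and 6.93 CPM after vehicle and 930.3, 833, 1041 and 725 CPM after PRA (log2 fold change 7.08 ± 0.40, SE, edgeR adjusted p = 7.08e-09). Saa2, an acute phase apolipoprotein, was at 68.6, 21.8, 27.9 and 19.4 CPM after vehicle and 7004, 6376, 9558 and 5446 CPM after PRA (log2 fold change 7.68 ± 0.65, SE, edgeR adjusted p = 8.32e-07). Vehicle replicate 1 held the most Saa2 of its group, and without it the log2 fold change was 8.28. Reads with more than 1 alignment were tallied outside the genes, so reads that Saa2 shares with its near-identical neighbour may be missing from its level. Ddit4 encodes REDD1, an inhibitor of the growth kinase complex mTORC1, and was at 10.9, 10.4, 8.89 and 5.91 CPM after vehicle and 255, 208, 178 and 203 CPM after PRA (log2 fold change 4.54 ± 0.40, SE, edgeR adjusted p = 1.05e-06). Kdr encodes VEGF receptor 2 of endothelial cells and was at 39.6, 25.9, 24.98 and 25.9 CPM after vehicle and 8.41, 12.7, 10.6 and 8.46 CPM after PRA (log2 fold change -1.53 ± 0.17, SE, edgeR adjusted p = 1.90e-06). In all 4 genes the PRA and vehicle libraries were apart: every PRA library was higher for Lcn2, Saa2 and Ddit4 and lower for Kdr. Kdr marks endothelial cells, and in whole-liver RNA fewer cells of a type and less of a transcript in each cell cannot be told apart.

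**Figure D2:**
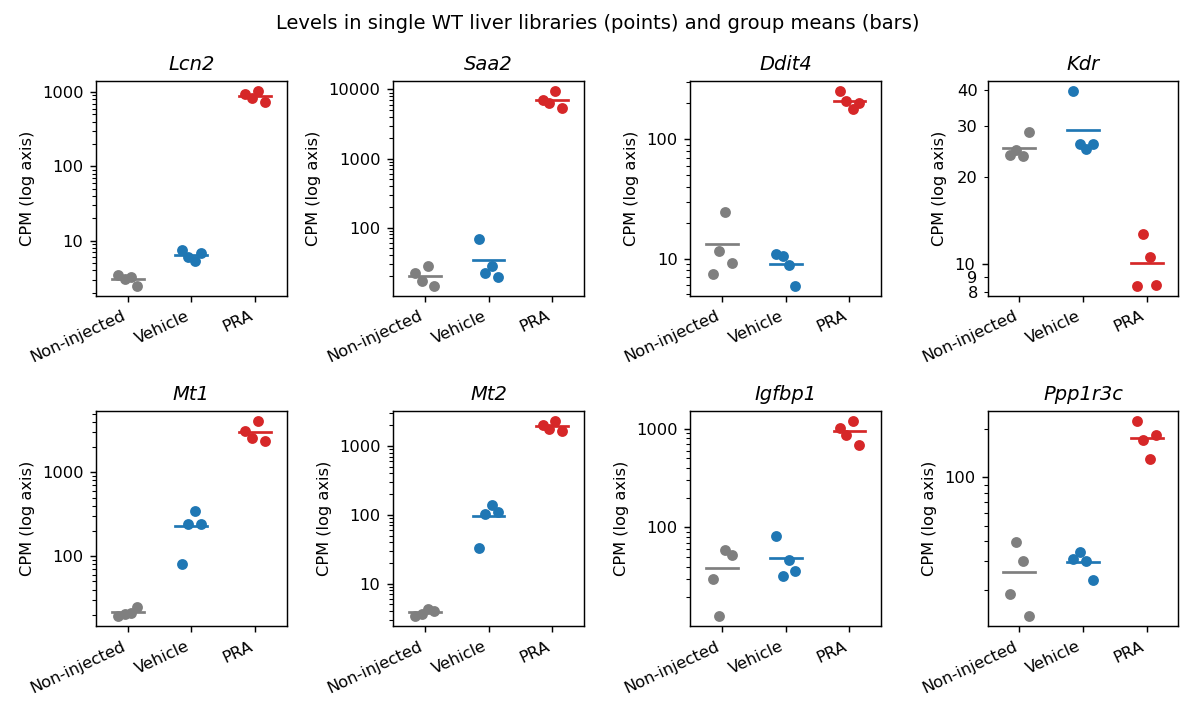
Levels of 8 genes in single WT libraries, in CPM on a log axis, for non-injected, vehicle and PRA liver; points are libraries and bars are means of 4. PRA and vehicle libraries do not overlap in any of the 8 genes, and in Mt1 and Mt2 the vehicle libraries also lie above the non-injected ones.

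More of the genes that restrain mTORC1 or build autophagosomes rose than fell. mTORC1 couples amino acids and growth factors to protein synthesis, and its inhibition releases autophagy, the recycling of cell contents in lysosomes. 15 of 36 tested members rose and 0 fell, with a median log2 fold change of 0.21, against 9 higher without PRA replicate 2. With upper quartile scaling 11 rose and 2 fell, and without vehicle replicate 2 there were 12 higher and 1 lower. Map1lc3b, the LC3B protein that coats the autophagosome membrane, was at 124, 147, 159 and 141 CPM after vehicle and 258, 255, 297 and 274 CPM after PRA (log2 fold change 0.93 ± 0.08, SE, edgeR adjusted p = 1.36e-07). Atg14, which directs the lipid kinase that starts autophagosomes, was at 20.3, 13.5, 11.6 and 16.8 CPM after vehicle and 25.6, 30.9, 29.8 and 32.9 CPM after PRA (log2 fold change 0.94 ± 0.14, SE, edgeR adjusted p = 8.03e-05). In both genes the lowest PRA library was above the highest vehicle library. The cargo receptor Sqstm1 (log2 fold change 0.54 ± 0.10, edgeR adjusted p = 0.000385) and Sesn2, a leucine sensor that holds mTORC1 back (0.58 ± 0.13, edgeR adjusted p = 0.00353), rose less. Tfeb, the transcription factor of lysosome genes, did not pass and overlapped between the groups, at 10.9, 12.1, 14.7 and 14.1 CPM after vehicle and 10.1, 12.5, 10.1 and 10.3 CPM after PRA.

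Igfbp1, which insulin holds down through FOXO1, and Foxo1 itself were higher, and the insulin-induced factor Srebf1 was lower. Insulin signals through PI3-kinase and AKT, which keeps FOXO1 out of the nucleus. 6 of 27 tested members rose and 1 fell in the insulin and FOXO list, against 3 lower without PRA replicate 1 or 4, with upper quartile scaling, in DESeq2 or in limma-voom. Igfbp1, a secreted binding protein of insulin-like growth factors and a FOXO1 target, was at 81.7, 32.4, 47.2 and 35.9 CPM after vehicle and 1005, 859.9, 1196 and 683 CPM after PRA (log2 fold change 4.24 ± 0.50, SE, edgeR adjusted p = 2.28e-05). The lowest PRA library was far above vehicle replicate 1, the highest of its group. Foxo1 itself was at 37.3, 27.5, 26.6 and 23.1 CPM after vehicle and 62.6, 64.8, 53.9 and 52.4 CPM after PRA (log2 fold change 1.03 ± 0.16, SE, edgeR adjusted p = 0.000104). Pik3r1, the regulatory subunit of PI3-kinase, was at 39.6, 45.1, 41.2 and 42.5 CPM after vehicle and 80.3, 82.6, 88.5 and 60.7 CPM after PRA (log2 fold change 0.89 ± 0.11, SE, edgeR adjusted p = 6.65e-06), and Trib1, a pseudokinase that limits lipogenesis, was at 47.6, 44.8, 41.8 and 41.6 CPM after vehicle and 96.1, 116, 100.3 and 107 CPM after PRA (log2 fold change 1.26 ± 0.11, SE, edgeR adjusted p = 7.79e-08). For both genes the groups did not overlap. Srebf1, the master factor of fatty acid synthesis, fell from 176, 179, 183 and 220.1 CPM to 103, 99.6, 102 and 94.8 CPM (log2 fold change -0.93 ± 0.20, SE, edgeR adjusted p = 0.00251). Igf1, the growth factor that Igfbp1 binds, was at 353, 449, 482 and 453 CPM after vehicle and 451, 517, 426 and 454 CPM after PRA and did not pass (log2 fold change 0.09 ± 0.11, SE, edgeR adjusted p = 0.614).

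The glycogen-targeting subunits Ppp1r3c and Ppp1r3g rose. These subunits bring protein phosphatase 1 to glycogen and so activate glycogen synthase. 5 of 30 tested members rose and 3 fell in the list of gluconeogenesis and glycogen, against 8 higher in DESeq2, in limma-voom or with only the 8 libraries fitted, and 3 higher without vehicle replicate 4 or PRA replicate 2, 3 or 4, and 1 lower without vehicle replicate 4 or PRA replicate 1 or 2, with no filter on low counts or with only the 8 libraries fitted. Ppp1r3c, one such subunit, was at 30.9, 34.3, 30.2 and 22.8 CPM after vehicle and 224, 169.7, 129 and 183 CPM after PRA (log2 fold change 2.58 ± 0.39, SE, edgeR adjusted p = 0.000204). Its relative Ppp1r3g was at 0.526, 0.498, 1.16 and 0.527 CPM after vehicle and 6.80, 5.53, 2.01 and 4.12 CPM after PRA (log2 fold change 2.78 ± 0.54, SE, edgeR adjusted p = 0.00139). PRA replicate 3 was the lowest treated library in both and was still above all vehicle libraries. Slc2a2, the glucose carrier GLUT2, fell (-0.53 ± 0.11, edgeR adjusted p = 0.00167). G6pc, which releases glucose from the liver, overlapped between the groups at 401, 268, 332 and 329.6 CPM after vehicle and 513, 238, 493 and 303 CPM after PRA.

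Genes that respond to glucocorticoids were mostly higher. The glucocorticoid receptor binds cortisol or corticosterone and acts on genes of stress, fasting and inflammation. 22 of 26 tested members rose and 0 fell in that list, with a median log2 fold change of 1.57, and its members include Ddit4, Mt1, Mt2, Pik3r1, Tat and Rasd1, described in their own places. Fkbp5, a chaperone that feeds back on the receptor, was at 128, 137, 122 and 178 CPM after vehicle and 318, 305, 362 and 285 CPM after PRA (log2 fold change 1.17 ± 0.16, SE, edgeR adjusted p = 2.79e-05). The groups did not overlap in Fkbp5. The 4 members that did not pass were the transcription factors Klf9 (0.35 ± 0.16, edgeR adjusted p = 0.10998) and Zbtb16 (0.00 ± 0.64, edgeR adjusted p = 0.997), the pyruvate dehydrogenase kinase Pdk4 (0.93 ± 0.37, edgeR adjusted p = 0.0778) and the AMP deaminase Ampd3 (0.11 ± 0.38, edgeR adjusted p = 0.872). Without vehicle replicate 1, Klf9 (0.50, edgeR adjusted p = 0.0268) and Pdk4 (1.22, edgeR adjusted p = 0.0369) passed too, and Pdk4 also passed in DESeq2 (DESeq2 adjusted p = 0.0219) and both did in limma-voom (adjusted p = 0.0125 for Klf9 and 0.00809 for Pdk4). Over the list the median log2 fold change of vehicle against non-injected liver was 0.16 and that of PRA against non-injected liver 1.87. These medians do not show how single members moved. Fkbp5 was at 43.7, 50.3, 48.3 and 60.6 CPM in non-injected liver, below all its vehicle libraries. Its change with vehicle against non-injected liver (1.48 ± 0.16, edgeR adjusted p = 5.73e-05) was larger than its change with PRA against vehicle.

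The metallothionein genes Mt1 and Mt2 and the zinc importer ZIP14 rose. Metallothioneins are small cysteine-rich proteins that bind zinc and copper; zinc acts on them through the factor MTF1, which binds metal response elements, and glucocorticoids and STAT3 act on the same locus. Promoters of Mt1 and Mt2 are shown because both genes rose together from neighbouring positions. They come from RefSeq on GRCm38.p6 and run from 250 bases before to 50 bases after the annotated start. Capitals mark the metal response element core searched on both strands, TGCACNC (A form) or TGCGCNC (G form).
Mt1, chr8:94178839-94179138, + strand: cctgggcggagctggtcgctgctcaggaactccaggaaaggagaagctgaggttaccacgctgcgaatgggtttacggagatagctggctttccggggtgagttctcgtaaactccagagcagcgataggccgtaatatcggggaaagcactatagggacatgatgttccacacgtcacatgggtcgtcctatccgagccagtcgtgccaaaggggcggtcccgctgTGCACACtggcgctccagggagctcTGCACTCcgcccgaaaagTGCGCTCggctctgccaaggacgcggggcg
Mt2, chr8:94172368-94172667, + strand: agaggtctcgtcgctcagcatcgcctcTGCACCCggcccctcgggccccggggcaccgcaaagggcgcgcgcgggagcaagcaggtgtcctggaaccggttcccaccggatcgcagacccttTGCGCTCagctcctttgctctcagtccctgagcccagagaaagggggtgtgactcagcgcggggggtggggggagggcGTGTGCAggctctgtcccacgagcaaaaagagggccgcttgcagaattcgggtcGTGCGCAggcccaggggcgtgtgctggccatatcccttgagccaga

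The Mt1 window held 2 A-form and 1 G-form matches, and the Mt2 window held 2 of each form. Over all 32851 promoter windows of this length, 12.6% held an A-form and 15.4% a G-form match, and over the windows of genes tested 13.2% and 24.8%. Among windows of genes at least 2-fold higher the shares were 14.1% and 19.1%, and among those at least 2-fold lower 17.4% and 22.6%. Both forms were thus found at least as often before genes that fell as before genes that rose, the G form less often in either set than over all genes tested, and a match is a description of the letters only.

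Mt1 was at 79.8, 239.8, 342 and 243 CPM after vehicle and 3092, 2584, 4094 and 2395 CPM after PRA (log2 fold change 3.75 ± 0.40, SE, edgeR adjusted p = 7.31e-06). Mt2 was at 33.3, 103, 139.8 and 109 CPM after vehicle and 2011, 1768, 2311 and 1679 CPM after PRA (log2 fold change 4.34 ± 0.44, SE, edgeR adjusted p = 4.92e-06). Vehicle replicate 1 was the lowest of its group in both, and all 4 PRA libraries lay above all vehicle libraries. Slc39a14 (ZIP14), which brings zinc, iron and manganese into hepatocytes, was at 191, 133, 126 and 161 CPM after vehicle and 341, 356, 403 and 351 CPM after PRA (log2 fold change 1.25 ± 0.15, SE, edgeR adjusted p = 3.92e-06). Other metal transporters fell. Atp7b, the copper exporter into bile, fell from 17.1, 14.6, 16.4 and 18.1 CPM to 7.73, 10.2, 10.2 and 10.6 CPM (log2 fold change -0.77 ± 0.12, SE, edgeR adjusted p = 0.000132). Slc31a2, a copper transporter of vesicles, fell as well (-0.52 ± 0.12, edgeR adjusted p = 0.00322), as did Slc39a8 (ZIP8), which recovers manganese from bile (-0.41 ± 0.08, edgeR adjusted p = 0.00110). Across the list, 6 of 29 tested members rose and 4 fell (median 0.18), against 11 higher in limma-voom.

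Some genes of sodium transport and cell volume changed, in both directions. Cells respond to altered tonicity by moving ions through pumps and volume-regulated channels, and by taking up organic osmolytes such as taurine, in part under the factor NFAT5. 4 of 34 tested members rose (11.8%) and 6 fell (17.6%), against 7 higher without vehicle replicate 1 or in limma-voom. These shares were near those of all genes (9.74% and 12.3%). Slc38a2 (SNAT2), a sodium-coupled importer of neutral amino acids, was at 78.7, 47.8, 43.2 and 50.4 CPM after vehicle and 208, 247, 266 and 201 CPM after PRA (log2 fold change 2.07 ± 0.17, SE, edgeR adjusted p = 8.59e-08). Atp1b1, the beta subunit of the sodium pump, was at 60.6, 70.5, 55.6 and 47.4 CPM after vehicle and 186, 209, 157 and 142 CPM after PRA (log2 fold change 1.57 ± 0.17, SE, edgeR adjusted p = 2.16e-06). Lrrc8a, the obligatory subunit of the volume-regulated anion channel, was at 14.3, 15.4, 16.2 and 16.0 CPM after vehicle and 32.7, 35.2, 34.4 and 32.6 CPM after PRA (log2 fold change 1.126 ± 0.07, SE, edgeR adjusted p = 1.20e-09). The 4 PRA libraries of each gene lay above the vehicle libraries, and those of Lrrc8a differed little among themselves. Sgk1, a kinase that raises sodium channel and carrier activity, was at 11.8, 8.57, 6.69 and 7.53 CPM after vehicle and 28.3, 22.8, 22.9 and 20.6 CPM after PRA (log2 fold change 1.45 ± 0.30, SE, edgeR adjusted p = 0.00249). Its PRA level narrowly missed the threshold against non-injected liver (0.80 ± 0.30, edgeR adjusted p = 0.0524). Slc6a6, the taurine transporter, went down instead, from 62.9, 47.3, 54.6 and 51.8 CPM to 32.9, 31.3, 28.3 and 26.6 CPM (log2 fold change -0.87 ± 0.10, SE, edgeR adjusted p = 3.48e-06). The potassium-chloride cotransporter Slc12a7 also fell (-0.62 ± 0.14, edgeR adjusted p = 0.00222). Nfat5 was at 14.4, 11.99, 12.4 and 11.96 CPM after vehicle and 11.8, 11.3, 11.4 and 10.5 CPM after PRA and did not pass (log2 fold change -0.17 ± 0.10, SE, edgeR adjusted p = 0.222). Slc12a1, the target of furosemide in kidney, was not measurable in these livers, with at most 4 counts in a vehicle library and 0 in each PRA library.

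Immediate early genes rose and none of those tested fell. Immediate early genes are induced within minutes of stress or growth signals without new protein synthesis, and their AP-1 factors then act on later genes. 17 of 29 tested members rose and 0 fell, with a median log2 fold change of 1.24 against -0.03 over all genes. Against non-injected liver the list median was 0.71 after PRA and -0.12 after vehicle. Btg2, an antiproliferative early gene, was at 14.2, 13.9, 11.3 and 7.36 CPM after vehicle and 44.3, 69.3, 71.8 and 73.0 CPM after PRA (log2 fold change 2.46 ± 0.20, SE, edgeR adjusted p = 1.37e-07). Jun, the AP-1 partner, was at 21.6, 32.8, 20.02 and 31.1 CPM after vehicle and 70.3, 86.9, 62.0 and 73.2 CPM after PRA (log2 fold change 1.47 ± 0.33, SE, edgeR adjusted p = 0.00429). Against non-injected liver Jun after PRA missed the threshold (0.87 ± 0.32, edgeR adjusted p = 0.0541). PRA libraries of Btg2 and Jun were all above vehicle. Cebpb and Cebpd, bZIP factors that drive acute phase promoters, rose by 1.86 and 2.28 on the log2 scale (edgeR adjusted p = 1.80e-10 and 3.53e-09).

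Feedback inhibitors of MAP kinases rose beside them: 11 of 24 tested members rose and 2 fell. Dusp1, which dephosphorylates p38 and JNK, was at 33.4, 45.2, 41.1 and 21.9 CPM after vehicle and 156, 121, 144 and 132 CPM after PRA (log2 fold change 1.97 ± 0.37, SE, edgeR adjusted p = 0.00123). In non-injected liver Dusp1 was at 112, 92.0, 67.9 and 84.9 CPM. Set against those libraries its PRA level missed the threshold (0.63 ± 0.36, edgeR adjusted p = 0.201). Dusp14 was lower in level and reached 4.57, 2.93, 2.19 and 2.71 CPM from 0.994, 0.700, 1.41 and 0.400 CPM (log2 fold change 1.82 ± 0.34, SE, edgeR adjusted p = 0.000645). Spry4, an inhibitor of receptor tyrosine kinase signalling, also rose (0.80 ± 0.15, edgeR adjusted p = 0.000728).

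In the list of growth arrest and cell cycle entry, 10 of 41 tested members rose and 6 fell. Cdkn1a, the p21 inhibitor of cyclin-dependent kinases, was at 23.2, 21.7, 5.83 and 6.85 CPM after vehicle and 200.1, 161, 157 and 137 CPM after PRA (log2 fold change 3.498 ± 0.68, SE, edgeR adjusted p = 0.00192). Vehicle replicates 1 and 2 held more than 3 and 4, and none reached the PRA range. Gadd45b, a stress activator of p38 signalling, was at 0.737, 1.43, 0.938 and 1.36 CPM after vehicle and 13.7, 13.3, 9.45 and 8.37 CPM after PRA (log2 fold change 3.33 ± 0.32, SE, edgeR adjusted p = 6.41e-07). Trp53inp1, a p53-induced protein that also takes part in autophagy, was at 22.3, 16.1, 12.5 and 14.01 CPM after vehicle and 94.0, 115, 56.8 and 66.9 CPM after PRA (log2 fold change 2.35 ± 0.27, SE, edgeR adjusted p = 1.02e-05). Plk3, a stress kinase of the polo family, was at 47.8, 41.9, 41.3 and 35.3 CPM after vehicle and 130.5, 181, 182 and 150.3 CPM after PRA (log2 fold change 1.95 ± 0.32, SE, edgeR adjusted p = 0.000365). All 4 PRA libraries were higher in each of these genes. Its relative Plk2 fell (-1.13 ± 0.15, edgeR adjusted p = 1.43e-05). Genes of G1 progression fell with it: Ccnd2, cyclin D2, from 5.24, 3.98, 3.53 and 4.78 CPM to 2.66, 3.04, 2.302 and 2.66 CPM (log2 fold change -0.72 ± 0.15, SE, edgeR adjusted p = 0.00133), and its kinase Cdk6 (-0.57 ± 0.10, edgeR adjusted p = 0.000448). Myc, which drives growth, was at 17.5, 10.9, 17.5 and 7.76 CPM after vehicle and 7.51, 12.1, 8.30 and 8.68 CPM after PRA and the groups overlapped.

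The IL-1 receptor, both TNF receptors and the adaptor MYD88 rose at the transcript level. IL-1 and Toll-like receptors signal through the adaptor MYD88 to NF-kB, which is held in the cytoplasm by its inhibitor NFKBIA and induces that inhibitor in turn. In the list of IL-1 and TNF receptors and NF-kB, 15 of 39 tested members rose and 2 fell. Il1r1, the signalling receptor of IL-1, was at 80.8, 35.8, 23.1 and 24.99 CPM after vehicle and 194, 195, 208 and 168 CPM after PRA (log2 fold change 2.21 ± 0.31, SE, edgeR adjusted p = 0.000105). Vehicle replicate 1 was the highest control and stayed below all PRA libraries. Tnfrsf1a, the main TNF receptor, was at 100.5, 105, 118 and 91.6 CPM after vehicle and 222, 205, 244 and 204 CPM after PRA (log2 fold change 1.07 ± 0.10, SE, edgeR adjusted p = 2.29e-07). Tnfrsf1b, the second TNF receptor, was at 28.2, 14.9, 16.8 and 18.6 CPM after vehicle and 45.6, 40.8, 44.7 and 47.1 CPM after PRA (log2 fold change 1.18 ± 0.20, SE, edgeR adjusted p = 0.000357). Myd88 was at 20.8, 19.5, 19.6 and 20.6 CPM after vehicle and 42.1, 36.7, 42.9 and 39.2 CPM after PRA (log2 fold change 0.999 ± 0.08, SE, edgeR adjusted p = 1.13e-08). The spread within each group of Myd88 was small beside the gap between groups. Of the inhibitors, Nfkbia was at 31.0, 30.8, 33.2 and 33.2 CPM after vehicle and 69.2, 75.6, 55.3 and 66.2 CPM after PRA (log2 fold change 1.06 ± 0.11, SE, edgeR adjusted p = 6.82e-07), and Tnip2 (1.25 ± 0.14, edgeR adjusted p = 2.09e-06) and Nfkbiz, a nuclear co-activator of NF-kB (1.22 ± 0.20, edgeR adjusted p = 0.000185), also rose.

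Among Toll-like receptors and innate adaptors, 9 of 37 tested members rose and 5 fell, against 3 lower without vehicle replicate 1 or PRA replicate 2. Lbp, the plasma protein that hands endotoxin to CD14, rose (1.22 ± 0.19, edgeR adjusted p = 0.000117). Cd14 was at 2.76, 2.301, 2.49 and 2.02 CPM after vehicle and 15.6, 13.9, 4.95 and 9.84 CPM after PRA (log2 fold change 2.204 ± 0.25, SE, edgeR adjusted p = 3.74e-06). PRA replicate 3 was the lowest treated library, and still above the vehicle libraries. Tlr12, a receptor of parasite profilin, fell from 5.47, 6.65, 6.24 and 9.38 CPM to 0.575, 1.69, 1.499 and 1.23 CPM (log2 fold change -2.44 ± 0.27, SE, edgeR adjusted p = 2.16e-06). Tlr5, the flagellin receptor, fell as well (-1.22 ± 0.28, edgeR adjusted p = 0.00347), and Tlr2 was at 2.07, 1.54, 2.16 and 1.20 CPM after vehicle and 3.13, 2.3005, 1.15 and 2.71 CPM after PRA with overlapping groups.

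Among chemokines and adhesion molecules 5 of 30 tested members rose and 5 fell. Cxcl1, which draws neutrophils through CXCR2, had the largest log2 fold change of the list. Its promoter is shown because it holds 2 matches to the NF-kB core made of GGGNN and then TTNCC (both strands searched, in capitals), with first bases 89 and 71 bases before the start. The core was found in 4.79% of all promoter windows and 5.39% of those of genes tested, in 6.46% of those of genes at least 2-fold higher and in 5.23% of those at least 2-fold lower.
Cxcl1, chr5:90890995-90891294, + strand: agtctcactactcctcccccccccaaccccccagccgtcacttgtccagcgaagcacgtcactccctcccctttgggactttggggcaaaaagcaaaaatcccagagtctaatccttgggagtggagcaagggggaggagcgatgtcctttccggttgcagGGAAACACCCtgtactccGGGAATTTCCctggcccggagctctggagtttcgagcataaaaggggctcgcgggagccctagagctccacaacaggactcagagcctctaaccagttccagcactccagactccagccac

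Cxcl1 was at 12.7, 9.39, 14.4 and 12.4 CPM after vehicle and 80.4, 158, 149.7 and 111 CPM after PRA (log2 fold change 3.35 ± 0.33, SE, edgeR adjusted p = 3.55e-06). Vcam1, an adhesion molecule for leukocytes, was at 13.7, 11.3, 11.3 and 5.58 CPM after vehicle and 28.4, 27.3, 23.6 and 26.6 CPM after PRA (log2 fold change 1.34 ± 0.18, SE, edgeR adjusted p = 2.06e-05). Ccl6, a macrophage and neutrophil chemokine, rose (1.31 ± 0.20, edgeR adjusted p = 7.99e-05). Cxcl12, which sinusoidal cells supply, fell from 176, 182, 219.5 and 257 CPM to 110.1, 111, 126 and 98.6 CPM (log2 fold change -0.91 ± 0.13, SE, edgeR adjusted p = 4.90e-05). Csf1, the macrophage growth factor, fell too (-0.74 ± 0.15, edgeR adjusted p = 0.00146).

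Some neutrophil transcripts, all at low levels, moved with these genes. Of 17 neutrophil markers 9 passed the filter on low counts, in part through the PRA libraries themselves, so how many of them rose is not given. Summed over these 9 the level was 1.65 to 3.71 CPM after vehicle and 13.2 to 15.03 CPM after PRA. That sum carries the same limit, since the filter chose its members. S100a8, a calcium-binding protein of neutrophil cytoplasm, was at 0.327, 0.218, 0.224 and 0.200 CPM after vehicle and 3.52, 3.79, 3.13 and 2.98 CPM after PRA (log2 fold change 3.75 ± 0.33, SE, edgeR adjusted p = 8.59e-08). S100a9, its partner, was at 0.456, 0.280, 0.449 and 0.364 CPM after vehicle and 3.45, 2.55, 2.06 and 3.29 CPM after PRA (log2 fold change 2.86 ± 0.40, SE, edgeR adjusted p = 3.53e-05), and all PRA libraries exceeded all vehicle libraries. The other 8 markers, Ly6g among them, had at most 9 counts in any of the 8 libraries. Their highest count lay in the vehicle group for some (Ngp, 8 against 2 after PRA). For others it lay in the PRA group (Ltf, 9 against 1 after vehicle). How far neutrophils carry the changes in innate genes was not tested.

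Ligands, SMADs and repressors of the TGF-beta superfamily changed in both directions. Ligands of this family, the activins (dimers of inhibin beta chains) and BMPs, act through receptor kinases on SMAD proteins; SMAD1, SMAD5 and SMAD9 carry BMP signals and SMAD2 and SMAD3 carry activin and TGF-beta signals. 5 of 43 tested members rose and 7 fell, shares near those of all genes. Inhbb, the chain of activin B, was at 3.39, 3.001, 1.92 and 3.09 CPM after vehicle and 17.8, 19.3, 19.7 and 15.8 CPM after PRA (log2 fold change 2.66 ± 0.17, SE, edgeR adjusted p = 8.59e-10). Inhba, the chain of activin A, was at 6.84, 5.19, 4.85 and 6.11 CPM after vehicle and 2.70, 1.24, 2.38 and 1.95 CPM after PRA (log2 fold change -1.50 ± 0.33, SE, edgeR adjusted p = 0.00329). In every PRA library Inhbb was above, and Inhba below, all vehicle libraries. Bmp6, which endothelial cells release to induce hepcidin, fell from 8.21, 7.42, 5.10 and 5.43 CPM to 3.27, 3.70, 3.13 and 2.62 CPM (log2 fold change -1.04 ± 0.16, SE, edgeR adjusted p = 8.18e-05).

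Of the signal carriers, Smad1 was at 15.5, 15.1, 12.9 and 14.9 CPM after vehicle and 29.0, 29.6, 34.1 and 28.3 CPM after PRA (log2 fold change 1.05 ± 0.09, SE, edgeR adjusted p = 5.79e-08). Smad9 was at 14.7, 12.2, 7.20 and 13.1 CPM after vehicle and 1.29, 1.94, 1.55 and 2.46 CPM after PRA (log2 fold change -2.68 ± 0.25, SE, edgeR adjusted p = 4.99e-07). These BMP-responsive SMADs separated in opposite directions without overlap. The repressor Skil (SnoN) was at 5.25, 3.55, 3.22 and 3.84 CPM after vehicle and 10.2, 10.6, 11.6 and 9.08 CPM after PRA (log2 fold change 1.38 ± 0.17, SE, edgeR adjusted p = 4.31e-06), while its relative Ski fell (-0.63 ± 0.12, edgeR adjusted p = 0.000964). Smad7, the inhibitory SMAD, overlapped between groups at 18.2, 21.0, 17.4 and 20.9 CPM after vehicle and 17.9, 16.6, 12.8 and 19.6 CPM after PRA. Hamp encodes hepcidin, the iron hormone that BMP and IL-6 signals induce, and was at 812, 1610.3, 1046 and 1107 CPM after vehicle and 1544, 1949, 2112 and 1726 CPM after PRA (log2 fold change 0.68 ± 0.24, SE, edgeR adjusted p = 0.0533). It missed the threshold, and passed it without vehicle replicate 2 (0.89, edgeR adjusted p = 0.0161) and in DESeq2 (0.70, DESeq2 adjusted p = 0.0139).

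Endothelial genes changed in both directions. VEGF receptor 2 and the Notch ligand DLL4 set endothelial identity and sprouting, HEY and HES factors are Notch targets, and KLF2 is the factor induced by laminar flow that raises endothelial nitric oxide synthase. Kdr fell, as given above, and 5 of 27 tested members rose and 7 fell in the VEGF list, against 4 lower without PRA replicate 4. Sox18, an endothelial factor, was at 6.51, 6.84, 8.10 and 6.60 CPM after vehicle and 2.77, 2.68, 1.95 and 2.73 CPM after PRA (log2 fold change -1.47 ± 0.15, SE, edgeR adjusted p = 6.41e-07). In the Notch list 0 of 24 tested members rose and 5 fell (median -0.31). Against non-injected liver the list median was -0.16 after PRA and 0.17 after vehicle. Dll4 was at 5.86, 3.56, 4.20 and 2.65 CPM after vehicle and 1.76, 1.51, 1.42 and 1.07 CPM after PRA (log2 fold change -1.51 ± 0.22, SE, edgeR adjusted p = 4.09e-05). Heyl was at 3.32, 3.09, 3.92 and 2.22 CPM after vehicle and 0.575, 0.767, 0.910 and 0.850 CPM after PRA (log2 fold change -1.998 ± 0.25, SE, edgeR adjusted p = 7.31e-06). Hes1 was at 8.37, 13.9, 18.6 and 12.8 CPM after vehicle and 6.26, 4.08, 5.30 and 6.78 CPM after PRA (log2 fold change -1.26 ± 0.25, SE, edgeR adjusted p = 0.00153). For Sox18, Dll4, Heyl and Hes1 alike, no PRA library reached the lowest vehicle library.

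Other endothelial genes rose. Nos3, the endothelial nitric oxide synthase, was at 4.38, 3.70, 3.71 and 4.76 CPM after vehicle and 12.8, 9.70, 9.85 and 8.82 CPM after PRA (log2 fold change 1.31 ± 0.15, SE, edgeR adjusted p = 1.85e-06). Klf2 was at 7.26, 5.71, 9.05 and 4.91 CPM after vehicle and 22.1, 15.4, 17.6 and 12.8 CPM after PRA (log2 fold change 1.33 ± 0.19, SE, edgeR adjusted p = 3.45e-05). Esam, a junction protein of endothelium and platelets, rose by 0.76 on the log2 scale (SE 0.13, edgeR adjusted p = 0.000162). Lyve1, the hyaluronan receptor of sinusoidal and lymphatic endothelium, was at 20.1, 15.3, 21.8 and 10.5 CPM after vehicle and 39.0, 40.8, 54.5 and 30.7 CPM after PRA (log2 fold change 1.29 ± 0.27, SE, edgeR adjusted p = 0.00235). PRA libraries of Nos3, Klf2 and Lyve1 were all above vehicle. Pecam1, which all endothelial cells carry, was at 25.3, 19.001, 20.4 and 20.4 CPM after vehicle and 25.2, 21.2, 23.7 and 19.6 CPM after PRA and the groups overlapped.

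Across 26 markers of sinusoidal endothelium, 1 rose and 15 fell, and their summed level was 557 to 823 CPM after vehicle and 458 to 535 CPM after PRA, against 8 lower without vehicle replicate 1, and 9 lower without PRA replicate 4. In non-injected liver the summed level was 517 to 605 CPM, which overlapped the PRA range. The median log2 fold change after PRA was -0.46 against vehicle and -0.19 against non-injected liver. That of vehicle against non-injected liver was 0.23. Dnase1l3, a secreted nuclease, was at 72.9, 67.3, 71.1 and 59.5 CPM after vehicle and 44.5, 40.2, 40.2 and 38.8 CPM after PRA (log2 fold change -0.73 ± 0.09, SE, edgeR adjusted p = 6.77e-06). Fcgr2b, the inhibitory Fc receptor that clears immune complexes, was at 44.6, 37.3, 35.1 and 34.2 CPM after vehicle and 22.3, 20.7, 21.3 and 22.1 CPM after PRA (log2 fold change -0.81 ± 0.11, SE, edgeR adjusted p = 1.60e-05). Neither gene overlapped between the groups. Of 24 markers of stellate cells and fibroblasts 0 rose and 11 fell, with summed levels of 697 to 831 CPM and 452 to 722 CPM, which overlapped. Ngfr, the nerve growth factor receptor of stellate cells, was at 6.78, 5.10, 5.28 and 2.49 CPM after vehicle and 1.04, 1.26, 1.58 and 1.28 CPM after PRA (log2 fold change -1.92 ± 0.28, SE, edgeR adjusted p = 4.73e-05). Lrat, which stores vitamin A there, was at 8.62, 7.06, 8.89 and 6.54 CPM after vehicle and 2.37, 2.86, 5.54 and 3.45 CPM after PRA (log2 fold change -1.12 ± 0.26, SE, edgeR adjusted p = 0.00361).

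Of 17 Kupffer cell markers 1 rose and 1 fell, with summed levels of 435 to 678 CPM after vehicle and 586 to 794 CPM after PRA. Clec4f, the lectin that defines these cells, was at 92.8, 89.7, 89.5 and 43.4 CPM after vehicle and 100.9, 127, 85.7 and 104 CPM after PRA and the groups overlapped. Among 14 monocyte markers 3 rose and 0 fell, against 5 higher without vehicle replicate 1. Of 11 B cell markers 4 fell and 0 rose, against 1 lower with a filter at 1 CPM, and 2 lower with only the 8 libraries fitted. Of 15 T and NK cell markers 1 fell and 0 rose. Of 14 markers of red blood cells and platelets 8 could be tested and 6 rose, at summed levels of 142 to 155 CPM after vehicle and 171 to 216 CPM after PRA, against 3 higher with only the 8 libraries fitted, and 2 higher without PRA replicate 4.

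Some receptors for pressor and volume signals changed as well. The liver makes angiotensinogen, the precursor of angiotensin, and answers catecholamines through adrenergic receptors. Among vasoactive genes 5 of 32 tested members rose (15.6%) and 6 fell (18.8%), beside 9.74% and 12.3% of all genes. In the list of renin-angiotensin and corticoid metabolism 2 of 22 tested members rose and 5 fell, against 3 lower without vehicle replicate 1. Agt, angiotensinogen, was at 569.9, 825, 767 and 783 CPM after vehicle and 1505, 1376, 1171 and 963 CPM after PRA (log2 fold change 0.77 ± 0.13, SE, edgeR adjusted p = 0.000220). Its receptor Agtr1a went the other way, from 53.2, 64.0, 67.2 and 55.0 CPM to 36.9, 38.7, 47.0 and 40.9 CPM (log2 fold change -0.55 ± 0.10, SE, edgeR adjusted p = 0.000483). Adra1a, the alpha-1A adrenergic receptor, was at 3.75, 2.83, 2.08 and 2.82 CPM after vehicle and 1.11, 1.128, 1.10 and 1.03 CPM after PRA (log2 fold change -1.40 ± 0.28, SE, edgeR adjusted p = 0.000957). The groups did not overlap in Agt, Agtr1a or Adra1a. Receptors of nitric oxide and natriuretic peptides fell: Gucy1b1, a subunit of soluble guanylate cyclase (-1.15 ± 0.23, edgeR adjusted p = 0.00105), and Npr1, the receptor of atrial natriuretic peptide (-0.82 ± 0.14, edgeR adjusted p = 0.000212).

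Coagulation genes rose in 17 of 38 and fell in 5, against 3 lower without PRA replicate 2 or 4 or with only the 8 libraries fitted. Thbd, thrombomodulin, which turns thrombin into an activator of the anticoagulant protein C, was at 3.79, 1.91, 1.88 and 4.16 CPM after vehicle and 23.8, 22.6, 19.6 and 17.4 CPM after PRA (log2 fold change 2.82 ± 0.21, SE, edgeR adjusted p = 2.54e-08). F3, tissue factor, which starts clotting, was at 5.34, 6.53, 9.38 and 8.38 CPM after vehicle and 3.09, 2.10, 2.54 and 2.19 CPM after PRA (log2 fold change -1.58 ± 0.24, SE, edgeR adjusted p = 7.17e-05). PRA libraries were above all vehicle libraries for Thbd and below all for F3.

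**Figure D3:**
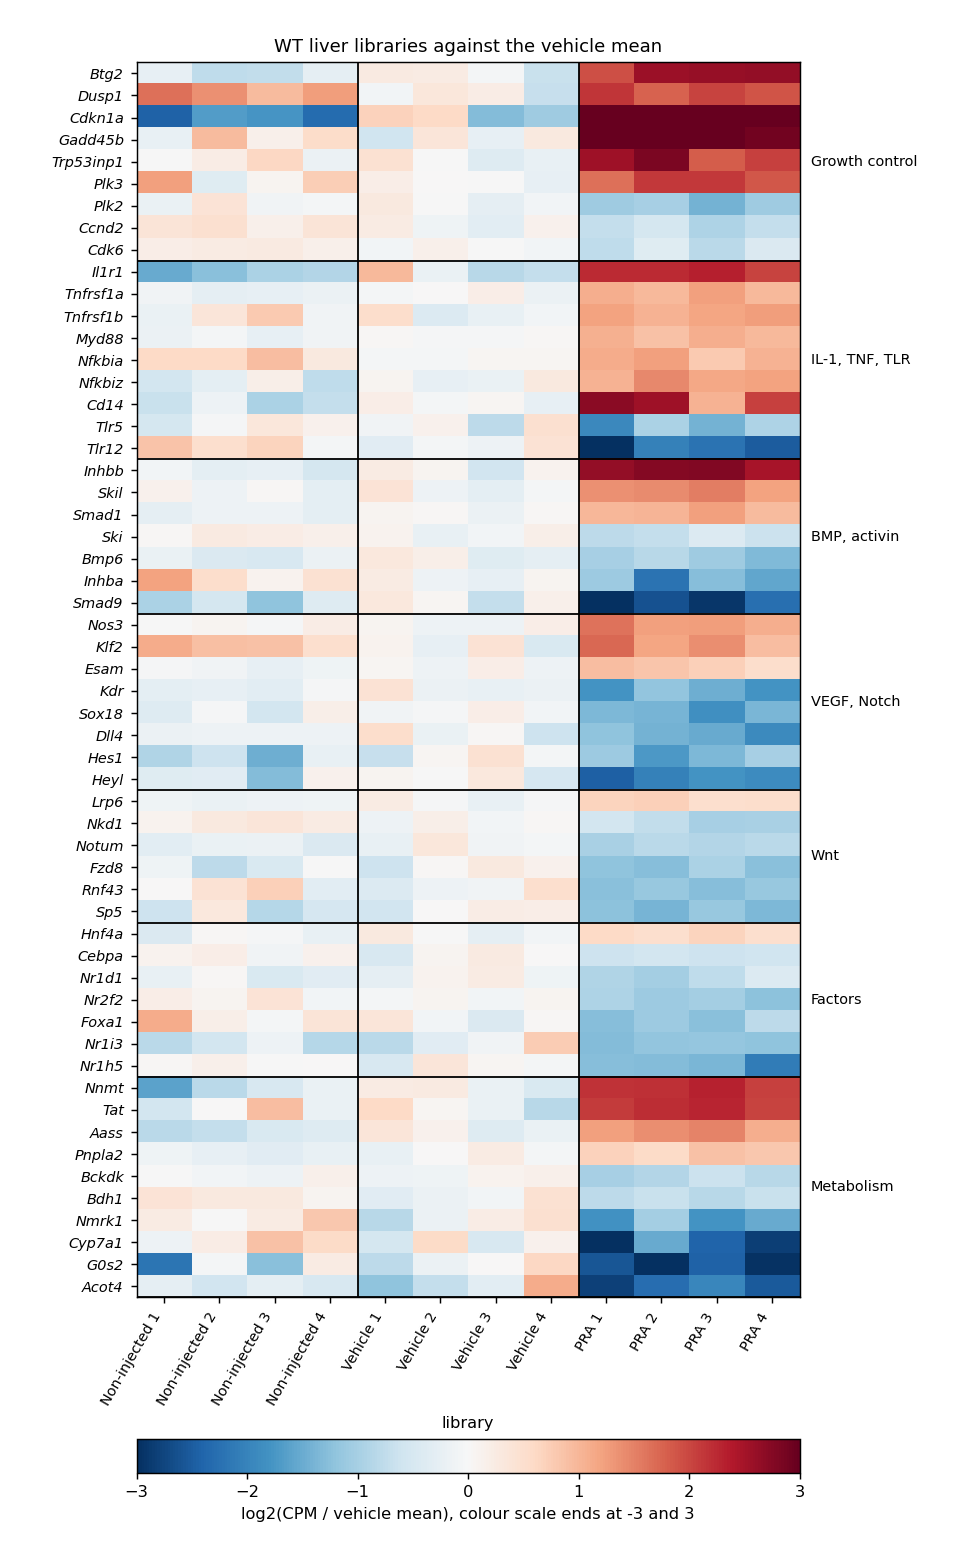
Levels of the signalling, factor and metabolic genes described in the text in 12 single WT libraries, as log2 of CPM over the vehicle mean (colour scale from -3 to 3). Each line is a gene and each column a library; within each group genes that rose (red) and fell (blue) in all 4 PRA libraries stand side by side.

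Wnt antagonists and targets fell, while Glul, Lgr5 and Axin2 did not pass. Endothelial Wnt signals around the central vein keep hepatocytes there in a glutamine synthetase and CYP2E1 programme, and the same signal induces its own antagonists. 2 of 32 tested members rose and 8 fell (median -0.26), against 4 higher in limma-voom. Sp5, a direct Wnt target, was at 2.99, 4.45, 5.20 and 5.13 CPM after vehicle and 1.91, 1.69, 2.03 and 1.75 CPM after PRA (log2 fold change -1.27 ± 0.23, SE, edgeR adjusted p = 0.000414). Rnf43, which removes Wnt receptors from the membrane, was at 12.9, 15.3, 16.0 and 24.4 CPM after vehicle and 7.23, 7.76, 7.04 and 7.83 CPM after PRA (log2 fold change -1.20 ± 0.20, SE, edgeR adjusted p = 0.000223). Fzd8, a Wnt receptor, was at 14.3, 22.5, 26.7 and 24.0 CPM after vehicle and 9.49, 8.98, 11.4 and 9.11 CPM after PRA (log2 fold change -1.17 ± 0.19, SE, edgeR adjusted p = 0.000199). PRA levels of these 3 genes varied little between libraries and were below all vehicle levels. Notum, a secreted enzyme that inactivates Wnt proteins, fell (-0.86 ± 0.12, edgeR adjusted p = 2.63e-05), as did the antagonist Nkd1 (-0.80 ± 0.13, edgeR adjusted p = 9.99e-05). Lrp6, the co-receptor, rose (0.61 ± 0.09, edgeR adjusted p = 4.23e-05).

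Axin2, a general Wnt target, was at 7.62, 5.80, 5.06 and 11.4 CPM after vehicle and 5.11, 6.04, 5.67 and 5.71 CPM after PRA. Lgr5, the receptor of the Wnt amplifier R-spondin, was at 4.19, 3.56, 2.59 and 2.76 CPM after vehicle and 1.91, 2.98, 1.95 and 2.75 CPM after PRA. Glul, glutamine synthetase, was at 1054, 1043, 1093 and 1482 CPM after vehicle and 952, 881, 1475 and 999.8 CPM after PRA. None of these 3 genes passed the test and each overlapped between groups. Cyp2e1 was at 4093, 6476, 6543 and 9291 CPM after vehicle and 7164, 7925, 8499.9 and 7331 CPM after PRA (log2 fold change 0.23), and without vehicle replicate 4 it passed as higher (0.44, edgeR adjusted p = 0.0360).

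More nuclear receptors and co-regulators fell than rose: 14 of 45 were lower and 6 higher, against 12.3% and 9.74% of all genes. Nuclear receptors are transcription factors that bind steroids, bile acids, fatty acids and foreign compounds. Nr1i3 (CAR), the xenobiotic sensor, was at 122, 169.5, 198 and 364 CPM after vehicle and 86.2, 93.6, 95.8 and 92.0 CPM after PRA (log2 fold change -1.21 ± 0.27, SE, edgeR adjusted p = 0.00422). Vehicle replicate 4 held the most, and the PRA libraries were close together below all vehicle libraries. Nr2f2 (COUP-TFII), abundant in endothelium and stellate cells, was at 29.1, 31.9, 28.5 and 32.0 CPM after vehicle and 15.9, 14.4, 14.96 and 12.9 CPM after PRA (log2 fold change -1.06 ± 0.13, SE, edgeR adjusted p = 6.38e-06). Nr1d1 (REV-ERB alpha), the clock repressor, was at 120.4, 157, 173 and 133 CPM after vehicle and 78.5, 72.5, 86.3 and 109 CPM after PRA (log2 fold change -0.75 ± 0.14, SE, edgeR adjusted p = 0.000672). Ppara, the sensor of fatty acids, fell as well (-0.67 ± 0.17, edgeR adjusted p = 0.00634), as did Rxrg (-1.27 ± 0.19, edgeR adjusted p = 5.51e-05) and the FXR-related Nr1h5 (-1.49 ± 0.22, edgeR adjusted p = 4.01e-05).

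Hnf4a, the factor that holds hepatocyte identity, was at 701, 566, 472 and 541 CPM after vehicle and 859, 808, 911 and 811 CPM after PRA (log2 fold change 0.57 ± 0.13, SE, edgeR adjusted p = 0.00318). Cebpa, its partner in mature hepatocytes, was at 367, 544, 624 and 519.5 CPM after vehicle and 332, 348, 333 and 339 CPM after PRA (log2 fold change -0.60 ± 0.12, SE, edgeR adjusted p = 0.00100). Foxa1, a pioneer factor, was at 17.0, 12.5, 9.71 and 13.6 CPM after vehicle and 5.43, 6.25, 5.57 and 7.61 CPM after PRA (log2 fold change -1.09 ± 0.25, SE, edgeR adjusted p = 0.00403). Hnf4a thus stood above all vehicle libraries where Cebpa and Foxa1 stood below them. Nr1h4 (FXR), the bile acid sensor, was at 126, 165, 167 and 179 CPM after vehicle and 134, 162, 146 and 141 CPM after PRA and did not pass. Among cytochromes P450 of families 1 to 3 and the receptors that sense their substrates 4 of 37 tested members rose and 4 fell. Each was 10.8% of the list, near the shares of all genes (9.74% and 12.3%). Cyp3a13 rose from 169, 163, 124 and 147 CPM to 274, 409, 379 and 277 CPM (log2 fold change 1.15 ± 0.14, SE, edgeR adjusted p = 3.97e-06), as did Ahr, the dioxin receptor (1.11 ± 0.26, edgeR adjusted p = 0.00567), and Cyp2u1 fell (-1.21 ± 0.13, edgeR adjusted p = 1.19e-06).

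More genes of the fatty acid oxidation list fell than rose, G0s2 fell and the lipase gene Pnpla2 rose. PPAR-alpha drives oxidation and the omega-hydroxylases of the Cyp4a family; adipose triglyceride lipase (PNPLA2) opens lipid droplets and G0S2 inhibits it. 0 of 39 tested members rose and 9 fell (median -0.18), against 3 higher in limma-voom. Cyp4a10 was at 159, 101.2, 137 and 418 CPM after vehicle and 26.2, 32.2, 45.1 and 42.2 CPM after PRA (log2 fold change -2.48 ± 0.47, SE, edgeR adjusted p = 0.00143). Acot4, a peroxisomal thioesterase, was at 12.4, 17.4, 23.1 and 61.9 CPM after vehicle and 4.13, 5.86, 7.44 and 4.99 CPM after PRA (log2 fold change -2.35 ± 0.40, SE, edgeR adjusted p = 0.000601). Vehicle replicate 4 was the highest in both, and without it the log2 fold changes were -1.86 and -1.65, both past the threshold. Bdh1, which makes beta-hydroxybutyrate, fell from 139, 156, 166 and 243 CPM to 103, 111, 99.3 and 111 CPM (log2 fold change -0.73 ± 0.14, SE, edgeR adjusted p = 0.000533). Cpt1a, the carnitine transferase that admits fatty acids to mitochondria, did not pass, at 379.5, 288, 280.0 and 435 CPM after vehicle and 227, 285, 309 and 302 CPM after PRA.

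G0s2 was at 85.1, 130.1, 149 and 227 CPM after vehicle and 25.1, 12.6, 27.5 and 18.995 CPM after PRA (log2 fold change -2.81 ± 0.48, SE, edgeR adjusted p = 0.000666). Pnpla2, the lipase it inhibits, was at 147, 173, 204 and 167 CPM after vehicle and 279, 255, 319.8 and 305 CPM after PRA (log2 fold change 0.75 ± 0.12, SE, edgeR adjusted p = 0.000142). The inhibitor was lower and the lipase higher in all 4 PRA libraries than in any vehicle library. Angptl4, a secreted inhibitor of lipoprotein lipase, rose (0.75 ± 0.20, edgeR adjusted p = 0.0101). In the droplet list 6 of 39 tested members rose and 6 fell, against 3 lower without PRA replicate 1 or 2, with no filter on low counts or with only the 8 libraries fitted, and 2 lower without vehicle replicate 3, and 1 lower without vehicle replicate 4 or PRA replicate 4. In the lipogenesis list 1 of 25 tested members rose and 6 fell, against 3 lower without PRA replicate 2 or with only the 8 libraries fitted, and 2 lower without vehicle replicate 1. Fasn, the fatty acid synthase, overlapped between groups at 493, 289, 390.1 and 516 CPM after vehicle and 334, 208, 415 and 359 CPM after PRA. Abca1, which loads cholesterol onto HDL, was at 54.9, 49.5, 41.6 and 50.5 CPM after vehicle and 90.2, 106, 106 and 89.0 CPM after PRA (log2 fold change 0.99 ± 0.10, SE, edgeR adjusted p = 5.60e-07).

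In the bile acid list 7 of 24 tested members rose and 5 fell. Cyp7a1, the rate-limiting enzyme of the classical route, was at 82.1, 175, 85.0 and 129 CPM after vehicle and 7.80, 41.6, 22.1 and 16.6 CPM after PRA (log2 fold change -2.41 ± 0.43, SE, edgeR adjusted p = 0.00101). Nr0b2 (SHP), the repressor of that gene, was at 6.73, 3.37, 9.97 and 8.36 CPM after vehicle and 29.5, 17.8, 15.4 and 26.8 CPM after PRA (log2 fold change 1.66 ± 0.42, SE, edgeR adjusted p = 0.0100). Enzymes downstream or on the alternative route rose, namely Cyp27a1 (0.54 ± 0.10, edgeR adjusted p = 0.000766), Baat, which conjugates bile acids to taurine and glycine (0.60 ± 0.08, edgeR adjusted p = 1.72e-05), and Cyp2c70, which makes muricholic acids (0.67 ± 0.17, edgeR adjusted p = 0.00722). Klb and Fgfr4, the receptor pair for the gut hormone FGF15, fell (-0.94 ± 0.16, edgeR adjusted p = 0.000231 and -0.45 ± 0.09, edgeR adjusted p = 0.00125). Slc10a2, the sodium-coupled bile acid importer best known from ileum and bile ducts, was at 22.1, 16.2, 10.9 and 18.1 CPM after vehicle and 60.04, 62.2, 72.0 and 52.2 CPM after PRA (log2 fold change 1.87 ± 0.26, SE, edgeR adjusted p = 6.71e-05). Slc13a5, the citrate importer of hepatocytes, was at 1.20, 0.933, 0.571 and 0.763 CPM after vehicle and 5.18, 4.40, 7.17 and 3.13 CPM after PRA (log2 fold change 2.49 ± 0.31, SE, edgeR adjusted p = 7.20e-06). All PRA libraries were above vehicle for both transporters.

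First enzymes of tyrosine, tryptophan, serine and lysine breakdown rose, and Bcat2 and Bckdk of the branched-chain route fell. 10 of 48 tested members rose and 4 fell. Tat, which opens tyrosine breakdown and is a classic glucocorticoid target, was at 2027, 1396, 1153 and 749 CPM after vehicle and 5719, 6136, 6444 and 5469 CPM after PRA (log2 fold change 2.16 ± 0.33, SE, edgeR adjusted p = 0.000183). Tdo2, the first enzyme of tryptophan breakdown, was at 1933, 2372, 1738 and 1489.8 CPM after vehicle and 3159.6, 3603, 3437 and 2684 CPM after PRA (log2 fold change 0.77 ± 0.18, SE, edgeR adjusted p = 0.00398). Sds, serine dehydratase, was at 309, 534, 448 and 205 CPM after vehicle and 1097, 1139, 1084 and 991 CPM after PRA (log2 fold change 1.53 ± 0.34, SE, edgeR adjusted p = 0.00438). Vehicle replicate 4 was the lowest library for Tat, Tdo2 and Sds. Aass, the first step of lysine breakdown, was at 329.6, 279, 197 and 223 CPM after vehicle and 604, 678, 724 and 547 CPM after PRA (log2 fold change 1.31 ± 0.17, SE, edgeR adjusted p = 1.31e-05). Each of these 4 enzymes was higher in all PRA libraries. Bcat2, which transaminates branched-chain amino acids, fell from 14.7, 25.5, 27.3 and 22.3 CPM to 9.89, 12.7, 13.7 and 13.1 CPM (log2 fold change -0.86 ± 0.15, SE, edgeR adjusted p = 0.000255), and so did Bckdk, the kinase that switches off their dehydrogenase (-0.83 ± 0.12, edgeR adjusted p = 3.45e-05).

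Among urea cycle and ammonia genes 4 of 22 tested members rose and 0 fell, against 2 higher without vehicle replicate 1 or 4 or PRA replicate 3. Slc25a15, the ornithine carrier of the mitochondrion, was at 337, 302, 219.6 and 239 CPM after vehicle and 515, 616, 581 and 508 CPM after PRA (log2 fold change 1.02 ± 0.16, SE, edgeR adjusted p = 8.11e-05), and Got1, which supplies aspartate, rose (0.998 ± 0.23, edgeR adjusted p = 0.00368). Cps1, the entry enzyme, was at 2858, 2639.5, 2301 and 2134 CPM after vehicle and 2689.6, 3203, 2985 and 2924 CPM after PRA (log2 fold change 0.25 ± 0.13, SE, edgeR adjusted p = 0.188). Arg1, which releases urea, was at 2092, 2944, 2717 and 1963 CPM after vehicle and 2814, 3288, 3540.4 and 2764 CPM after PRA (log2 fold change 0.35 ± 0.13, SE, edgeR adjusted p = 0.0634). It missed the threshold but passed without vehicle replicate 2 (0.46, edgeR adjusted p = 0.0252) or 3 (0.41, edgeR adjusted p = 0.0478), and in DESeq2 (0.37, DESeq2 adjusted p = 0.0318). Ass1 was at 4025, 6122, 5039 and 3043 CPM after vehicle and 6132, 6701, 6474 and 5246 CPM after PRA, with edgeR adjusted p = 0.0922, and passed without vehicle replicate 2 (0.60, edgeR adjusted p = 0.0217). Of the amino acid transporters, 7 of 33 tested members rose and 3 fell, against 11 higher in limma-voom. Slc7a6, a cationic and neutral amino acid exchanger, was at 0.234, 0.233, 0.122 and 0.182 CPM after vehicle and 2.52, 1.17, 1.74 and 1.30 CPM after PRA (log2 fold change 3.07 ± 0.35, SE, edgeR adjusted p = 2.58e-06).

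In kynurenine and NAD metabolism 6 of 29 tested members rose and 4 fell. Nnmt, which methylates nicotinamide and so removes it from NAD recycling, was at 129, 132, 94.1 and 79.9 CPM after vehicle and 489, 494, 541 and 451 CPM after PRA (log2 fold change 2.18 ± 0.24, SE, edgeR adjusted p = 4.83e-06). Nmrk1, the kinase that makes NAD from nicotinamide riboside, was at 14.7, 23.1, 30.3 and 36.1 CPM after vehicle and 7.41, 12.9, 7.55 and 9.08 CPM after PRA (log2 fold change -1.49 ± 0.30, SE, edgeR adjusted p = 0.00198). Nnmt was higher and Nmrk1 lower in every PRA library than in any vehicle library. Acmsd, which diverts tryptophan carbon away from NAD, was at 61.3, 45.3, 71.1 and 21.7 CPM after vehicle and 94.7, 102, 112 and 98.5 CPM after PRA (log2 fold change 1.03 ± 0.27, SE, edgeR adjusted p = 0.0119).

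Purine genes rose in 7 of 33 and fell in 2, against 3 higher with no filter on low counts, and 4 higher without vehicle replicate 2. Paics, of purine synthesis, was at 248, 246, 238 and 196 CPM after vehicle and 449.9, 428, 387 and 313 CPM after PRA (log2 fold change 0.77 ± 0.12, SE, edgeR adjusted p = 9.08e-05), and Pnp, the phosphorylase that feeds urate production, was at 27.5, 24.5, 24.0 and 20.3 CPM after vehicle and 47.2, 40.2, 43.0 and 43.6 CPM after PRA (log2 fold change 0.85 ± 0.11, SE, edgeR adjusted p = 1.40e-05). Xdh, the last step to urate, was at 123.05, 109, 97.1 and 107 CPM after vehicle and 134, 132, 134 and 123.5 CPM after PRA and did not pass (log2 fold change 0.27 ± 0.12, SE, edgeR adjusted p = 0.122). In methionine metabolism Mat1a, which makes S-adenosylmethionine, was at 2495, 2606, 2061 and 2784 CPM after vehicle and 3912, 4213, 5277 and 3719.8 CPM after PRA (log2 fold change 0.78 ± 0.16, SE, edgeR adjusted p = 0.00111). Bhmt, which remethylates homocysteine, was at 4394, 6354, 6049.5 and 6008 CPM after vehicle and 9836, 9321, 9684 and 8226 CPM after PRA (log2 fold change 0.70 ± 0.19, SE, edgeR adjusted p = 0.0108). Both were higher in all PRA libraries, while the list as a whole had 3 of 32 higher and 3 lower, against 5 higher in DESeq2 or in limma-voom, and 6 higher without vehicle replicate 1, and 5 lower with upper quartile scaling.

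Heme oxygenase rose with its repressor. Hmox1, which degrades heme, was at 22.3, 18.3, 21.8 and 16.0 CPM after vehicle and 210.4, 309, 154 and 109.5 CPM after PRA (log2 fold change 3.32 ± 0.33, SE, edgeR adjusted p = 3.07e-06). Bach1, the heme-sensing repressor of Hmox1, rose (0.94 ± 0.16, edgeR adjusted p = 0.000295), as did its partner Mafk (0.75 ± 0.15, edgeR adjusted p = 0.00151). Steap4, a metalloreductase, was at 141, 73.8, 54.7 and 94.5 CPM after vehicle and 773, 552, 869.8 and 550.3 CPM after PRA (log2 fold change 2.92 ± 0.26, SE, edgeR adjusted p = 6.41e-07), and its relative Steap3 fell (-0.63 ± 0.12, edgeR adjusted p = 0.000528). In heme and iron handling 7 of 29 tested members rose and 3 fell, and among NRF2 and antioxidant genes 6 of 37 tested members rose and 0 fell.

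Genes of protein quality control and ribosome assembly rose more often than they fell against vehicle. For unfolded protein, heat shock, ribosome biogenesis and proteasome lists, median log2 fold changes of PRA against non-injected liver were 0.09, 0.04, 0.02 and 0.20. Those of vehicle against non-injected liver were -0.09, -0.19, -0.17 and -0.02 in the same order. In the unfolded protein and integrated stress response 13 of 44 tested members rose and 1 fell, against 7 higher without vehicle replicate 2. Herpud1, of endoplasmic reticulum degradation, was at 360.4, 329.9, 353 and 320.4 CPM after vehicle and 757, 726, 583 and 689.9 CPM after PRA (log2 fold change 1.01 ± 0.16, SE, edgeR adjusted p = 0.000122). Ppp1r15a (GADD34), which restores translation after stress, was at 13.01, 14.6, 13.7 and 13.9 CPM after vehicle and 24.6, 27.8, 26.3 and 26.2 CPM after PRA (log2 fold change 0.92 ± 0.11, SE, edgeR adjusted p = 3.18e-06). Atf3, a stress factor, was at 0.631, 0.715, 0.938 and 0.854 CPM after vehicle and 3.31, 6.34, 2.60 and 5.08 CPM after PRA (log2 fold change 2.48 ± 0.53, SE, edgeR adjusted p = 0.00308). Its PRA level missed the threshold against non-injected liver (1.27 ± 0.50, edgeR adjusted p = 0.0697). Asns, the usual reporter of ATF4, overlapped at 4.92, 10.9, 2.77 and 13.3 CPM after vehicle and 5.90, 9.34, 9.21 and 22.4 CPM after PRA. Among heat shock proteins 6 of 29 tested members rose and 1 fell. Hspb8, a small chaperone, was at 194, 228, 174 and 201 CPM after vehicle and 502, 547, 511 and 515 CPM after PRA (log2 fold change 1.38 ± 0.13, SE, edgeR adjusted p = 1.36e-07), and its co-chaperone Bag3 was at 47.0, 46.4, 41.6 and 47.3 CPM after vehicle and 95.8, 95.2, 94.4 and 90.6 CPM after PRA (log2 fold change 1.04 ± 0.16, SE, edgeR adjusted p = 9.11e-05). These partners of chaperone-assisted autophagy were higher in all 4 PRA libraries.

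In ribosome biogenesis 12 of 45 tested members rose and 2 fell (median 0.21). Rrs1, a ribosome assembly factor, was at 25.9, 27.8, 24.4 and 25.7 CPM after vehicle and 44.4, 48.3, 49.9 and 46.7 CPM after PRA (log2 fold change 0.87 ± 0.08, SE, edgeR adjusted p = 2.44e-07), and Gnl2, a nucleolar GTPase, rose too (0.73 ± 0.08, edgeR adjusted p = 1.51e-06). Dkc1, which pseudouridylates ribosomal RNA, fell (-0.67 ± 0.10, edgeR adjusted p = 4.84e-05). In the proteasome list 13 of 40 tested members rose and 0 fell (median 0.21), against 1 higher with upper quartile scaling, 8 higher without PRA replicate 1 and numbers between these without vehicle replicate 1 or 2 or PRA replicate 2, 3 or 4 or with no filter on low counts. Psmd13, a lid subunit, was typical at 46.1, 50.8, 55.1 and 56.0 CPM after vehicle and 64.5, 64.1, 62.3 and 66.5 CPM after PRA (log2 fold change 0.31 ± 0.08, SE, edgeR adjusted p = 0.00547). Ribosomal protein genes had a median of 0.19 over 85 genes, with 1 higher and 0 lower, against 23 higher without vehicle replicate 3. The 72 nuclear genes of the respiratory chain had a median of 0.20, with 3 higher and 0 lower, against 0 higher without vehicle replicate 1, 2 or 4 or PRA replicate 1, 2 or 4 or with upper quartile scaling, 33 higher without vehicle replicate 3 and numbers between these without PRA replicate 3, with RLE scaling, in limma-voom, in DESeq2 or with only the 8 libraries fitted. Both medians were above 0 with RLE and upper quartile scaling as well, and the share of higher genes in both was below that of all genes when all libraries were used.

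Genes named Zfp encode zinc finger proteins, many of them transcriptional repressors. Of 339 tested, 73 were lower (21.5%) and 9 higher (2.65%), beside 12.3% and 9.74% of all genes, with a median log2 fold change of -0.23 against -0.03 over all genes. The counts were 90 lower and 8 higher after upper quartile scaling, and 70 and 10 after RLE scaling, against 16 higher without vehicle replicate 1 or in limma-voom. Zfp324 fell from 3.06, 3.45, 2.94 and 3.71 CPM to 0.360, 0.406, 0.963 and 1.07 CPM (log2 fold change -2.20 ± 0.25, SE, edgeR adjusted p = 2.24e-06). Major urinary proteins, pheromone carriers made in liver, rose in 12 of 22 (median 0.70), against 3 higher without PRA replicate 2, 20 higher with only the 8 libraries fitted and numbers between these without vehicle replicate 2, 3 or 4 or PRA replicate 4 or with no filter on low counts. Mup genes are near-identical, so reads they share may be missing from their counts, and the level of each is uncertain. Mitochondrial carriers of the Slc25 family rose in 13 and fell in 4 of 42, against 2 lower with RLE scaling or with no filter on low counts, and 1 lower without vehicle replicate 2 or 3 or PRA replicate 1 or 3 or with only the 8 libraries fitted. The families were chosen by name after the calls were known.

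**Figure D4:**
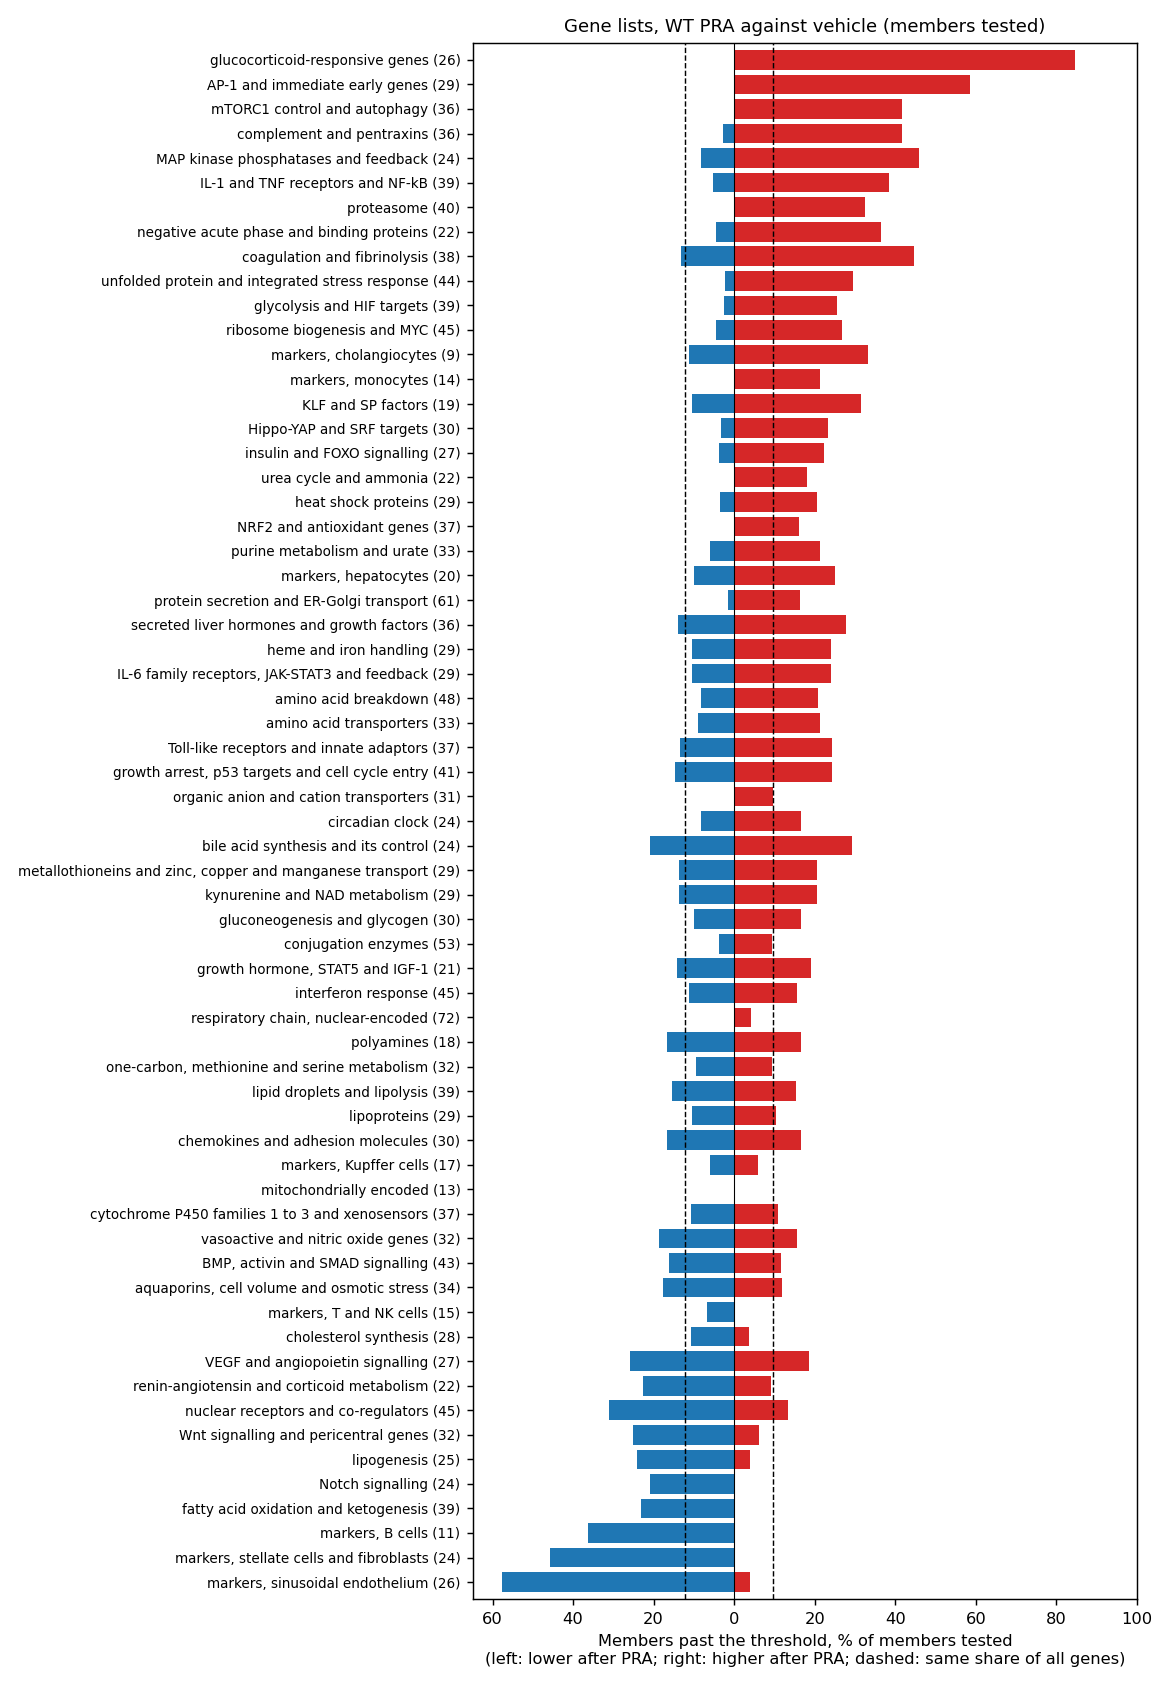
Share of members past the threshold in each gene list with at least 9 tested members other than the positive acute phase list and the neutrophil markers (9 of 17 tested), in % of members tested (number in brackets): red bars to the right are higher and blue bars to the left lower after PRA, and dashed lines give the same shares of all genes (9.74% and 12.3%). The lists are ordered by the share higher minus the share lower, with glucocorticoid-responsive genes at the top and markers of sinusoidal endothelium at the bottom. The cholangiocyte markers include Krt19, which among PRA libraries was high only in replicate 1, and 0 of these markers were higher with no filter on low counts.

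Several of the largest changes were in genes whose levels are not given above. Rasd1, a dexamethasone-induced Ras protein, was at 0.807, 0.389, 0.387 and 0.582 CPM after vehicle and 11.8, 12.7, 13.2 and 8.88 CPM after PRA (log2 fold change 4.39 ± 0.25, SE, edgeR adjusted p = 3.50e-10). Sebox, a homeobox gene, was at 0.690, 0.373, 0.469 and 0.273 CPM after vehicle and 7.69, 10.9, 8.002 and 5.55 CPM after PRA (log2 fold change 4.12 ± 0.34, SE, edgeR adjusted p = 6.33e-08). Syt12, a synaptotagmin, was at 1.18, 0.529, 0.469 and 0.836 CPM after vehicle and 8.52, 7.62, 11.72 and 9.96 CPM after PRA (log2 fold change 3.62 ± 0.35, SE, edgeR adjusted p = 4.82e-07). Each was at or below 1.18 CPM in every vehicle library and at or above 5.55 CPM in every PRA library. Hcar2, the receptor of beta-hydroxybutyrate and niacin, was at 0.304, 0.311, 0.306 and 0.182 CPM after vehicle and 2.48, 3.23, 5.94 and 1.77 CPM after PRA (log2 fold change 3.59 ± 0.42, SE, edgeR adjusted p = 3.76e-06), and Tmem100, a BMP-dependent membrane protein of vessels, was at 0.386, 0.218, 0.204 and 0.182 CPM after vehicle and 3.99, 2.77, 2.92 and 2.60 CPM after PRA (log2 fold change 3.57 ± 0.28, SE, edgeR adjusted p = 1.69e-08). Tead1, the DNA-binding partner of YAP, rose (1.56 ± 0.21, edgeR adjusted p = 1.59e-05), while Ajuba, which restrains the Hippo kinases, fell (-0.97 ± 0.14, edgeR adjusted p = 3.15e-05).

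Among the largest decreases, Dclk3, a doublecortin-like kinase, was at 8.54, 9.52, 14.9 and 12.2 CPM after vehicle and 1.29, 1.58, 1.74 and 1.39 CPM after PRA (log2 fold change -2.90 ± 0.28, SE, edgeR adjusted p = 7.29e-07). Tnfsf10 (TRAIL), a death ligand, was at 3.22, 2.92, 4.89 and 2.85 CPM after vehicle and 0.611, 0.631, 0.749 and 0.738 CPM after PRA (log2 fold change -2.33 ± 0.23, SE, edgeR adjusted p = 3.20e-07). Paqr7, a membrane progestin receptor, was at 34.4, 37.8, 35.8 and 62.7 CPM after vehicle and 7.37, 11.5, 7.36 and 11.9 CPM after PRA (log2 fold change -2.15 ± 0.24, SE, edgeR adjusted p = 8.38e-06). In all 3 the PRA libraries were below the lowest vehicle library. Arrdc3, an arrestin that limits beta-adrenergic and insulin signalling, was at 71.8, 88.0, 80.3 and 185 CPM after vehicle and 28.0, 27.6, 15.6 and 27.2 CPM after PRA (log2 fold change -2.11 ± 0.38, SE, edgeR adjusted p = 0.000848), and vehicle replicate 4 was its highest library. Neat1, a nuclear long non-coding RNA, fell from 279, 392, 249.9 and 255 CPM to 165, 159, 159 and 151 CPM (log2 fold change -0.89 ± 0.15, SE, edgeR adjusted p = 0.000179). Vtn, vitronectin, was one of the largest gains in CPM, from 2555, 3157, 3252 and 2764 to 4978, 4806, 4442 and 4053 (log2 fold change 0.64 ± 0.10, SE, edgeR adjusted p = 8.82e-05).

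Set against non-injected liver, 4421 of 15570 genes differed after PRA (28.4%), 2098 higher (13.5%) and 2323 lower (14.9%). This comparison shares the PRA libraries with the one above. For some genes the vehicle libraries, not the PRA libraries, stood apart. Pfkfb3, which makes the activator of glycolysis fructose 2,6-bisphosphate, was at 34.7, 32.8, 41.8 and 30.6 CPM in non-injected liver, against 11.996, 4.32, 5.42 and 7.60 CPM after vehicle and 36.7, 35.5, 48.4 and 41.4 CPM after PRA. Bcl6, a repressor of the growth hormone response, was at 25.7, 77.1, 95.2 and 14.1 CPM without injection, against 10.6, 5.91, 9.30 and 7.16 CPM after vehicle and 42.8, 43.1, 34.0 and 45.2 CPM after PRA. Noct, a clock-controlled phosphatase, was at 14.3, 39.0, 78.1 and 39.0 CPM, against 11.8, 10.2, 6.61 and 9.16 CPM after vehicle and 29.1, 37.2, 31.8 and 27.0 CPM after PRA. In these 3 genes every vehicle library was below every non-injected and every PRA library. Their log2 fold changes of PRA against non-injected liver were 0.21 ± 0.31, edgeR adjusted p = 0.665 for Pfkfb3, -0.36 ± 0.45, edgeR adjusted p = 0.594 for Bcl6 and -0.45 ± 0.37, edgeR adjusted p = 0.393 for Noct.

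Nr0b2 was at 7.40, 23.8, 34.5 and 32.3 CPM in non-injected liver and Amd1, of polyamine synthesis, at 19.4, 18.3, 20.3 and 19.7 CPM, against 12.5, 11.4, 10.7 and 12.1 CPM after vehicle and 13.3, 21.4, 17.5 and 18.7 CPM after PRA. Hspa5 (BiP), the main chaperone of the endoplasmic reticulum, was at 529, 935, 546 and 555 CPM without injection, against 465, 354, 405 and 394 CPM after vehicle and 679.5, 620.4, 578 and 573 CPM after PRA. For all 3 genes the PRA libraries overlapped the non-injected ones, and the vehicle mean was the lowest. Metallothioneins showed the reverse: Mt1 was at 19.4, 20.7, 20.8 and 25.05 CPM and Mt2 at 3.39, 3.68, 4.23 and 4.02 CPM in non-injected liver, so that vehicle libraries already lay above them. Against that baseline the PRA log2 fold changes were 7.15 ± 0.47, edgeR adjusted p = 2.29e-08 for Mt1 and 8.98 ± 0.55, edgeR adjusted p = 1.19e-08 for Mt2.

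**Figure D5:**
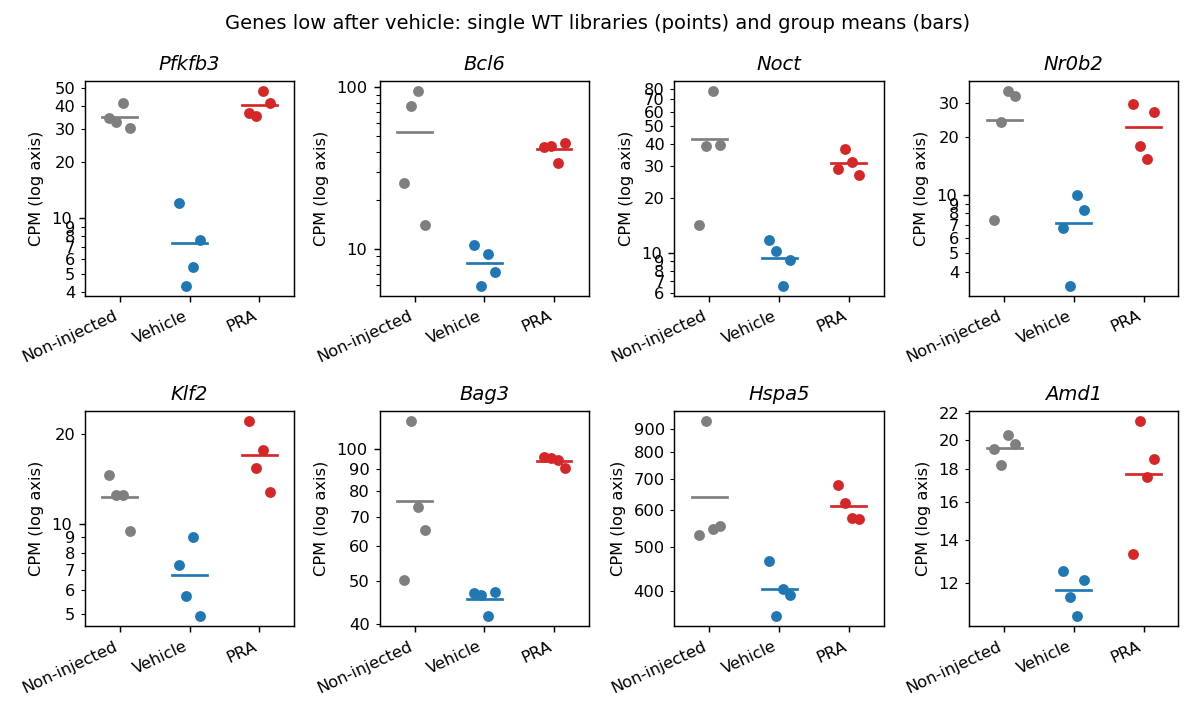
Levels of 8 genes in single WT libraries, in CPM on a log axis, for non-injected, vehicle and PRA liver; points are libraries and bars are means of 4. Vehicle means are the lowest of the 3 groups in every panel, and the ranges of PRA and non-injected libraries overlap in all 8.

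Whether these responses need IL-6 was asked with the interaction of genotype and treatment, in which the WT response is taken from that of IL-6-/- liver. It passed in 74 of 15570 genes (0.475%), 6 with a more positive (0.0385%) and 68 with a more negative response in IL-6-/- liver (0.437%). The count was 40 without WT vehicle replicate 2, 42 without WT PRA replicate 3, 43 without IL-6-/- vehicle replicate 3 and 37 without IL-6-/- PRA replicate 2. Lrrc8a was at 13.6 ± 0.613 CPM after vehicle and 18.3 ± 0.974 CPM after PRA in IL-6-/- liver (mean ± SD, n = 4 and 3), an interaction of -0.70 on the log2 scale (edgeR adjusted p = 0.00153). Myd88 was at 17.6 ± 0.820 CPM after vehicle and 20.9 ± 1.45 CPM after PRA there (interaction -0.75, edgeR adjusted p = 0.00115). Tnfrsf1a (-0.91, edgeR adjusted p = 0.00328), Steap4 (-2.63, edgeR adjusted p = 0.00161), Slc13a5 (-2.71, edgeR adjusted p = 0.0118) and Abca1 (-0.77, edgeR adjusted p = 0.0174) also rose less without IL-6. The BMP-responsive SMADs carried opposite signs again, with -0.66 for Smad1 (edgeR adjusted p = 0.0209) and 1.74 for Smad9 (edgeR adjusted p = 0.0247). Both estimated responses were thus smaller in the knockout. The call of Smad9 was lost in limma-voom (adjusted p = 0.115) and with no filter on low counts (edgeR adjusted p = 0.0646). Left-out libraries ended 3 of these calls: Abca1 (edgeR adjusted p = 0.0589 to 0.0590 without IL-6-/- PRA replicate 1 or 2), Smad1 (edgeR adjusted p = 0.0517 to 0.0752 without WT PRA replicate 3 or IL-6-/- PRA replicate 1 or 2) and Smad9 (edgeR adjusted p = 0.0522 to 0.0968 without WT vehicle replicate 1, 2 or 4, WT PRA replicate 1 or 3, IL-6-/- vehicle replicate 1 or 3 or IL-6-/- PRA replicate 2 or 3).

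Most genes described above did not pass the interaction. For Ddit4 it was -0.95 (edgeR adjusted p = 0.652), for Mt1 0.00 (edgeR adjusted p = 1), for Igfbp1 -0.76 (edgeR adjusted p = 0.832), for Kdr 0.22 (edgeR adjusted p = 0.887) and for Tat 0.04 (edgeR adjusted p = 0.994). Mt2 reached 28.6 ± 17.1 CPM after vehicle and 699.9 ± 146 CPM after PRA in IL-6-/- liver and Kdr 31.1 ± 1.31 CPM after vehicle and 12.5 ± 3.41 CPM after PRA. A missed threshold with 3 knockout PRA libraries does not show equal responses.

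Remaining lists gave the following counts of genes that passed. Complement had 15 up and 1 down of 36 (8 higher without PRA replicate 2), with C4b (0.55 ± 0.10, edgeR adjusted p = 0.000386) and Serping1, the C1 inhibitor (0.44 ± 0.09, edgeR adjusted p = 0.000877), among those that rose. Secreted hormones and growth factors had 10 up and 5 down of 36 (6 higher without vehicle replicate 1 or PRA replicate 1 or 2, and 2 lower without PRA replicate 1, 2 or 4 or with no filter on low counts). Gdf15, a stress hormone that acts on appetite, was at 2.36, 5.38, 3.16 and 4.38 CPM after vehicle and 13.1, 16.0, 6.34 and 16.5 CPM after PRA (log2 fold change 1.77 ± 0.43, SE, edgeR adjusted p = 0.00759). The joint list of binding proteins and proteins known to fall in the acute phase had 8 up and 1 down of 22 (3 higher without vehicle replicate 2 or PRA replicate 1 or with upper quartile scaling, and 5 higher without PRA replicate 2 or 4 or with only the 8 libraries fitted, and 4 higher without vehicle replicate 1 or PRA replicate 3). Of these, Ambp rose (0.57 ± 0.12, edgeR adjusted p = 0.00122), and Ttr, transthyretin, overlapped between groups at 5369, 7343, 6984 and 5273 CPM after vehicle and 7059, 7173, 6517 and 6676 CPM after PRA.

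Interferon genes had 7 up and 5 down of 45, with Usp18 higher (1.09 ± 0.22, edgeR adjusted p = 0.00139) and Irf1 lower (-0.52 ± 0.11, edgeR adjusted p = 0.00110). The growth hormone list had 4 up and 3 down of 21 (1 lower without PRA replicate 1), with Egfr higher (0.64 ± 0.18, edgeR adjusted p = 0.0130), and Ghr overlapped between groups at 246, 289, 289 and 282 CPM after vehicle and 296, 330.1, 262 and 277 CPM after PRA. Clock genes had 4 up and 2 down of 24 (2 higher without vehicle replicate 2 or 4 or PRA replicate 3 or 4 or with no filter on low counts, and 7 higher in limma-voom). Nfil3, a repressor of clock output, rose (1.48 ± 0.28, edgeR adjusted p = 0.00120), and Per2 overlapped at 7.04, 6.87, 12.3 and 16.1 CPM after vehicle and 6.69, 7.60, 8.46 and 6.53 CPM after PRA. Glycolysis and HIF targets had 10 up and 1 down of 39 (6 higher without vehicle replicate 2 or PRA replicate 2, and 5 higher without vehicle replicate 4), KLF and SP factors 6 up and 2 down of 19, Hippo-YAP and SRF targets 7 up and 1 down of 30 (3 lower without vehicle replicate 3) and polyamine genes 3 up and 3 down of 18 (1 lower without vehicle replicate 2 or 3 or PRA replicate 3 or 4 or with only the 8 libraries fitted). IL-6 family receptors with JAK-STAT3 feedback had 7 up and 3 down of 29. Protein secretion had 10 up and 1 down of 61 (4 higher with no filter on low counts, 16 higher in limma-voom and numbers between these without vehicle replicate 2 or PRA replicate 1, 2, 3 or 4 or with upper quartile scaling). Lipoprotein genes had 3 up and 3 down of 29 (5 higher in DESeq2, and 5 lower with upper quartile scaling), cholesterol synthesis 1 up and 3 down of 28, organic anion and cation transporters 3 up and 0 down of 31 (5 higher without PRA replicate 3, with RLE scaling or in limma-voom, and 6 higher in DESeq2) and conjugation enzymes 5 up and 2 down of 53 (3 higher without vehicle replicate 3 or 4 or PRA replicate 2 or 4, and 8 higher without PRA replicate 3, and 4 lower in limma-voom). Of the 13 mitochondrially encoded genes, 0 rose and 0 fell.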

How the data were processed

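Messenger RNA of mouse liver was sequenced as poly(A)-selected libraries. Reads were aligned with HISAT2 2.2.1 to GRCm39, handled with SAMtools 1.13 and counted per gene with HTSeq 0.11.3, per the submitters' processing notes; the annotation release and the strand setting were not given in the sources used here, so overlapping genes cannot be told apart. The authors deposited whole-number counts per gene for 55416 genes, and the 19 per-library files held the same counts as the series table. Lines that name no gene stayed out of library sizes. Reads in genes made up 66.95% to 71.71% of each library's total, and 3 counts, the limit that a count of 0 allows for counting error, came to 0.0405 to 0.0935 CPM. Symbols were matched for 52083 genes.

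Genes were filtered on low counts by group and fitted with edgeR 4.0.16 (TMM scaling, robust quasi-likelihood test) in R 4.3.3, with 1 mean per group over all 19 libraries and no covariate. P-values were adjusted over all genes by Benjamini-Hochberg. Errors of log2 fold changes are standard errors. The procedure was tested on simulated data for WT PRA against WT vehicle over 15314 genes: of simulated 1.5-fold changes 47.8% were found, of 2-fold changes 64.2% and of 4-fold changes 87.9%, and 5 unchanged genes were called. The changes were set in 67, 67 and 66 genes drawn at any level. Far fewer genes were thus changed than the 22.1% called in these data, so these shares do not measure recovery here. Alternatives were DESeq2 1.42.0, limma-voom (limma 3.58.1), other scalings and filters, a fold threshold of 1.5, only the groups compared, the replicate block and each library left out.

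Replicate numbers recur in the groups, and same-numbered libraries correlated in their deviations by only 0.00878, 0.115, 0.0184 and -0.0804, so they were not treated as pairs. The least different pair of replicates still differed beyond sampling noise (chi-square over degrees of freedom 22.47). The 67 gene lists and the genes shown were chosen with earlier results of these data known. Genes were named from a rule, requiring a passed test, groups that do not overlap and 2 CPM or more on average in the higher group: the 3 of smallest p per list and direction, Lcn2, Saa2, Ddit4 and Kdr, and, outside the positive acute phase list, the 15 largest log2 fold changes and the 10 largest CPM changes per direction, and, of all these, the 8 of smallest interaction p. Of 212 genes named, 157 came under the rule. The other 55 were chosen for their role, after their values had been seen, among them those printed as not passing. Some genes that the rule picked are not reported here.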

Additional observations from a re-analysis of the deposited data

Results flagged for a closer look

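A library far from the other 3 of its group was looked for in 424 groups of 4 libraries, the vehicle and the PRA group of each gene named, by Dixon's test, which flags about 1 group in 20 by chance. It found 25 such libraries, 6 of them WT PRA replicate 1 and 9 WT vehicle replicate 4. WT PRA replicate 1 was high for Acta2 (58.2 CPM), Dmbt1 (278 CPM), Krt19 (40.9 CPM) and the smooth muscle myosin Myh11 (46.6 CPM) and low for Atp7b (7.73 CPM) and Btg2 (44.3 CPM). WT vehicle replicate 4 was high for Acta2 (19.1 CPM), Myh11 (16.3 CPM), the arrestin Arrdc3 (185 CPM), the glutamine synthetase gene Glul (1482 CPM), the progestin receptor Paqr7 (62.7 CPM) and the lipogenic factor Srebf1 (220.1 CPM). The same library was low for the Kupffer cell lectin Clec4f (43.4 CPM), for Csf1 (12.6 CPM) and for Hcar2 (0.182 CPM). WT vehicle replicate 1 was high for Kdr (39.6 CPM), Nfat5 (14.4 CPM) and Zbtb16 (49.4 CPM) and low for Ghr (246 CPM). WT vehicle replicate 3 was low for Bag3 (41.6 CPM) and high for Ppp1r3g (1.16 CPM). Among other PRA libraries, replicate 3 was low for Arrdc3 (15.6 CPM) and Sox18 (1.95 CPM), replicate 2 was high for Tfeb (12.5 CPM) and replicate 4 was low for Nr1h5 (0.470 CPM). Why these libraries differ was not tested.

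The response to PRA differed between IL-6-/- and WT liver in 13 of the genes named, by the interaction term in edgeR. On the log2 scale the knockout response minus the WT response was -6.19 for Saa2, -4.06 for Lcn2, -3.07 for Syt12, -2.74 for S100a8, -2.71 for Slc13a5, -2.63 for Steap4, -2.29 for Sebox, -0.91 for Tnfrsf1a, -0.77 for Abca1, -0.75 for Myd88, -0.70 for Lrrc8a and -0.66 for Smad1. It was 1.74 for Smad9, the 1 gene of the 13 that fell in WT liver. The call of Sebox was lost in limma-voom (adjusted p = 0.0987) and in 12 of the 15 fits that left out 1 library (edgeR adjusted p = 0.0518 to 0.106), and those of Abca1, Smad1 and Smad9 in the fits given with their values above.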

How the results depend on the processing

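Most genes described were picked by a passed test and groups that do not overlap. That choice favours genes that stay past the threshold in other fits, so their retention does not measure that of all calls. Of the 180 genes described as higher or lower, 178 kept direction and threshold in all 8 fits that left out 1 WT library. The exceptions were Krt19 and Dmbt1. All 180 kept both with RLE and with upper quartile scaling, and 107 did with a fold threshold of 1.5. That threshold tests for changes beyond 1.5-fold and left 342 genes higher and 283 lower, 516 and 409 against non-injected liver, and 17 in the interaction. By list it left 11 immediate early genes higher, 8 of IL-1, TNF and NF-kB, 2 of mTORC1 and autophagy and 1 of complement, and 2 markers each of endothelium and stellate cells lower. DESeq2 passed 176 genes in the interaction. Leaving out 1 library gave 37 to 95 genes in the interaction, and 1199 to 1632 higher and 1529 to 1793 lower in WT PRA against vehicle. Without WT PRA replicate 1 the log2 fold changes of Acta2, Dmbt1, Krt19 and Myh11 turned to -0.84, -6.48, -0.41 and -1.26, and without WT vehicle replicate 4 that of Glul turned to 0.018. Across the left-out libraries these ranged from -0.84 to 2.504 for Acta2, -6.48 to 9.22 for Dmbt1, -0.41 to 3.48 for Krt19, -1.26 to 2.16 for Myh11 -0.31 to 0.018 for Glul, -0.12 to 0.60 for Ampd3 and -0.26 to 1.129 for Zbtb16. Zbtb16 was at -0.034 with upper quartile scaling and -0.0034 with no filter on low counts. A missed call was gained by Hamp with a filter at 1 CPM (edgeR adjusted p = 0.0493) and with only the 8 libraries fitted (edgeR adjusted p = 0.0199), by Pdk4 in the latter (edgeR adjusted p = 0.0293), and by Xdh in limma-voom (adjusted p = 0.0334). With the replicate block, 1390 genes were higher and 1814 lower after PRA, 1979 and 2226 against non-injected liver, and 74 passed the interaction. In the block Hamp (edgeR adjusted p = 0.0136), Arg1 (edgeR adjusted p = 0.0405) and Pdk4 (edgeR adjusted p = 0.0413) passed, and Dmbt1 and Krt19 did not. Same-numbered libraries shared only a number: not every library correlated best with its own. The simulated recovery, 64.2% of 2-fold changes, was not split by level and came with few genes changed, so it sets no depth limit. A gene under about 0.0935 CPM cannot be told from 0 in the shallowest library.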
